A study of Mus musculus with 30 samples.

Results

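The ATF4 amino acid and stress response genes are 40 mouse genes that were listed by name: the transcription factor gene Atf4, its partner and target genes, and the enzymes, carriers and transfer RNA synthetases that serve amino acid supply. All 40 were found among the 54532 features of the count files, and all 40 were expressed well enough to be tested. They were followed in 30 tumours of YUMM1.7, a mouse melanoma line with mutant Braf, grown under the skin of mice for which the labels give the strain C57BL/6 and no age. The tumours came from 5 clones that had been isolated with CaTCH, a barcode method that recovers chosen cells from a mixed culture. These were the pair 2646TN and 2646R, the pair 14559TN and 14559R, and 13TN, a clone without a partner whose titles carry the word Depleted. TN and R are not explained by the labels and serve here as names. Each clone was grown without drug or with RAFi/MEKi, given in the labels by those names and with no dose, so there were 10 groups of 3 tumours. Tumours were digested with Collagenase A, stained for the leukocyte protein CD45, and live cells with strong GFP were taken as the injected cancer cells. Each clone is 1 line, so a difference between clones rests on 1 clone on each side, and every p-value here covers the spread between tumours and not between clones. The series asks how the paired clones differ and how each responds to the drugs.

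As background, ATF4 is a transcription factor whose protein is made when eIF2 alpha is phosphorylated by one of the stress kinases GCN2, PERK, PKR or HRI, the arm of physiology called the integrated stress response. Amino acid shortage acts through GCN2 and misfolded protein in the endoplasmic reticulum through PERK. ATF4 binds DNA with C/EBP and other bZIP proteins and switches on genes that make, import and charge amino acids. It also induces DDIT3, also called CHOP, and feedback genes such as Trib3 and Ppp1r15a. In melanoma the program has been studied for its part in adaptation to nutrient stress and to drugs against BRAF and MEK. Messenger RNA of Atf4 reports only part of this control, because the protein is regulated largely at translation.

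ATF4 and a C/EBP partner bind the letters TGATGNAA, the C/EBP-ATF composite element, and these were searched on both strands of the promoter window of each member, which runs from 250 bases before to 50 bases after the RefSeq start (GRCm38.p6). A window was at hand for 33 members. The 7 without one are Cars, Slc7a5, Slc1a5, Nars, Slc7a3, Wars and Mars. The element was present in 13 of the 33 windows (39.4%), beside 4.51% of the 27025 genes that have a window. The 13 were Aars, Asns, Atf3, Chac1, Gars, Nupr1, Pycr1, Slc1a4, Slc7a11, Tars, Trib3, Vldlr and Yars. One form of it, TGATGCAA, was singled out after the matches had been seen and was present in 10 of the 33 windows, beside 1.03% of genes. The CRE TGACGTCA was present in 1 member window, that of Ppp1r15a (2.03% of genes), and the E-box CACGTG in 5, those of Aars, Aldh18a1, Gdf15, Nupr1 and Tars (8.09% of genes). A match is a description of letters, and binding was not measured. The stretches shown are those of the 6 members with the element whose responses differed most clearly among the 5 clones. They are shown 5′ to 3′ on the strand of the gene, with the element in capitals, as its reverse complement in each of these windows, so that the expression values that follow can be set beside them.
Nupr1 (chr7:126625537-126625616, minus strand, motif beginning 110 bases before the start): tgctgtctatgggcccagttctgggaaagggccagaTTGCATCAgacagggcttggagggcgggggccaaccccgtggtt
Aars (chr8:111033694-111033773, plus strand, motif beginning 112 bases before the start): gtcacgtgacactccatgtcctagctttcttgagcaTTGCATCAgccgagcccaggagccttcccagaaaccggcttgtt
Aars (chr8:111033840-111033869, plus strand, motif beginning 9 bases after the start): agcgggtcactTTTCATCAgagcgctctga
Chac1 (chr2:119351013-119351092, plus strand, motif beginning 193 bases before the start): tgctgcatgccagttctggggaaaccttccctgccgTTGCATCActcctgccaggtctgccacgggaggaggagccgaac
Trib3 (chr2:152344028-152344057, minus strand, motif beginning 14 bases after the start): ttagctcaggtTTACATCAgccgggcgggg
Vldlr (chr19:27216784-27216863, plus strand, motif beginning 200 bases before the start): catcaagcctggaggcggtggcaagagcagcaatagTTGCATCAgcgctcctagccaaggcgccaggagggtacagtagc
Slc1a4 (chr11:20332699-20332728, minus strand, motif beginning 4 bases before the start): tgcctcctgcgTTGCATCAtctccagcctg

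Libraries were made from transcript 3′ ends, and each held 3022801 to 5278453 counts, with a median of 4042893. The deepest library, untreated 2646R replicate 1, had the fewest genes detected (14669, against 15632 to 17234 in the others). Levels are in CPM, the count of a gene relative to its library total after scaling with TMM factors. A fold change is a log2 difference between groups, given with its standard error, and a gene is called where edgeR's quasi-likelihood test gave an adjusted p under 0.05 (Benjamini-Hochberg, over the 13286 genes tested). Values in threes are the tumours of a group in the order of their replicate numbers, which are only names. The pigment cell genes Tyr, Tyrp1, Dct, Oca2 and Gpr143 were at 0 in all 30 libraries and Mlana in 29, while Mitf was detected in all 30 (12.01 to 81.3 CPM). Others of the melanocyte list were detected in most libraries. Sox10 was at 0 in 10 and reached 51.8 CPM, Pmel was at 0 in 3 and S100b in 2, with highest values of 1.81 and 11.7 CPM. Kit, Ednrb, Trpm1 and Slc45a2 were at 0 in 22, 24, 27 and 29. The defining genes of lymphocytes and neutrophils were at or near 0 (sums of 0 to 7.31 and 0 to 10.6 CPM). In treated 14559R, replicate 1 was the lowest and replicate 3 the highest for nearly all members. Results that rest on replicate 3 are given with and without it. Fewer cells of a type and less RNA per cell cannot be told apart in such sorted pools.

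Across the 10 groups, most members were highest in untreated 2646R, and more than 20 of the 40 fell with RAFi/MEKi in each of 2646R, 13TN and 14559TN. Untreated 2646R had the highest group mean for 32 of 40 members, and treated 14559TN the lowest for 22. In 2646R, 34 of 40 members fell with treatment and 0 rose, beside 10.2% of all tested genes called lower and 9.70% called higher. In 13TN 31 fell and 0 rose (17.4% and 13.6% of all genes), and in 14559TN 21 fell and 0 rose (16.0% and 12.4%). In 2646TN 6 fell and 0 rose (2.24% and 1.69%), leaving out any 1 library of that clone left 2 to 5, and 1 of the 6 calls held in every alternative fit. In 14559R edgeR called 0 of 40, beside 0.0527% of all genes called lower and 0.143% called higher, and DESeq2 also called 0. At an unadjusted p under 0.05 the 14559R count was 5, and the share of all genes at that cut was not counted. The median log2 fold change of the 40 members was -1.25 in 2646R, -1.11 in 13TN, -0.68 in 14559TN, -0.36 in 2646TN and -0.26 in 14559R. Medians over all tested genes lay between -0.0054 and 0.034 in every comparison.

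The 5 responses were not alike: an F test over them in edgeR called 32 of 40 members, beside 28.8% of all genes. The 8 not called were Atf4, Atf3, Sesn2, Psph, Aldh18a1, Slc7a5, Eprs and Yars. The same test over the 5 untreated clones called 38, all but Sesn2 and Pycr1, beside 56.6% of all genes. No member was called lower in more than 3 responses: 19 were lower in 3, 14 in 2 and 7 in 1. The responses of 2646R, 14559TN and 13TN use separate tumours. They shared 15 lower members, which were Aars, Asns, Cars, Chac1, Eprs, Gars, Gpt2, Mthfd2, Nars, Psat1, Sesn2, Slc38a2, Slc7a5, Tars and Trib3. The 26 members lower in both 2646R and 13TN were 76.5% of the 2646R calls and 83.9% of those in 13TN. The calls of 2646TN and 14559TN had 0 members in common, out of 6 and 21. Shared calls and calls by number of responses were counted for the members only, so no share of all genes stands beside them.

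**Figure D1:**
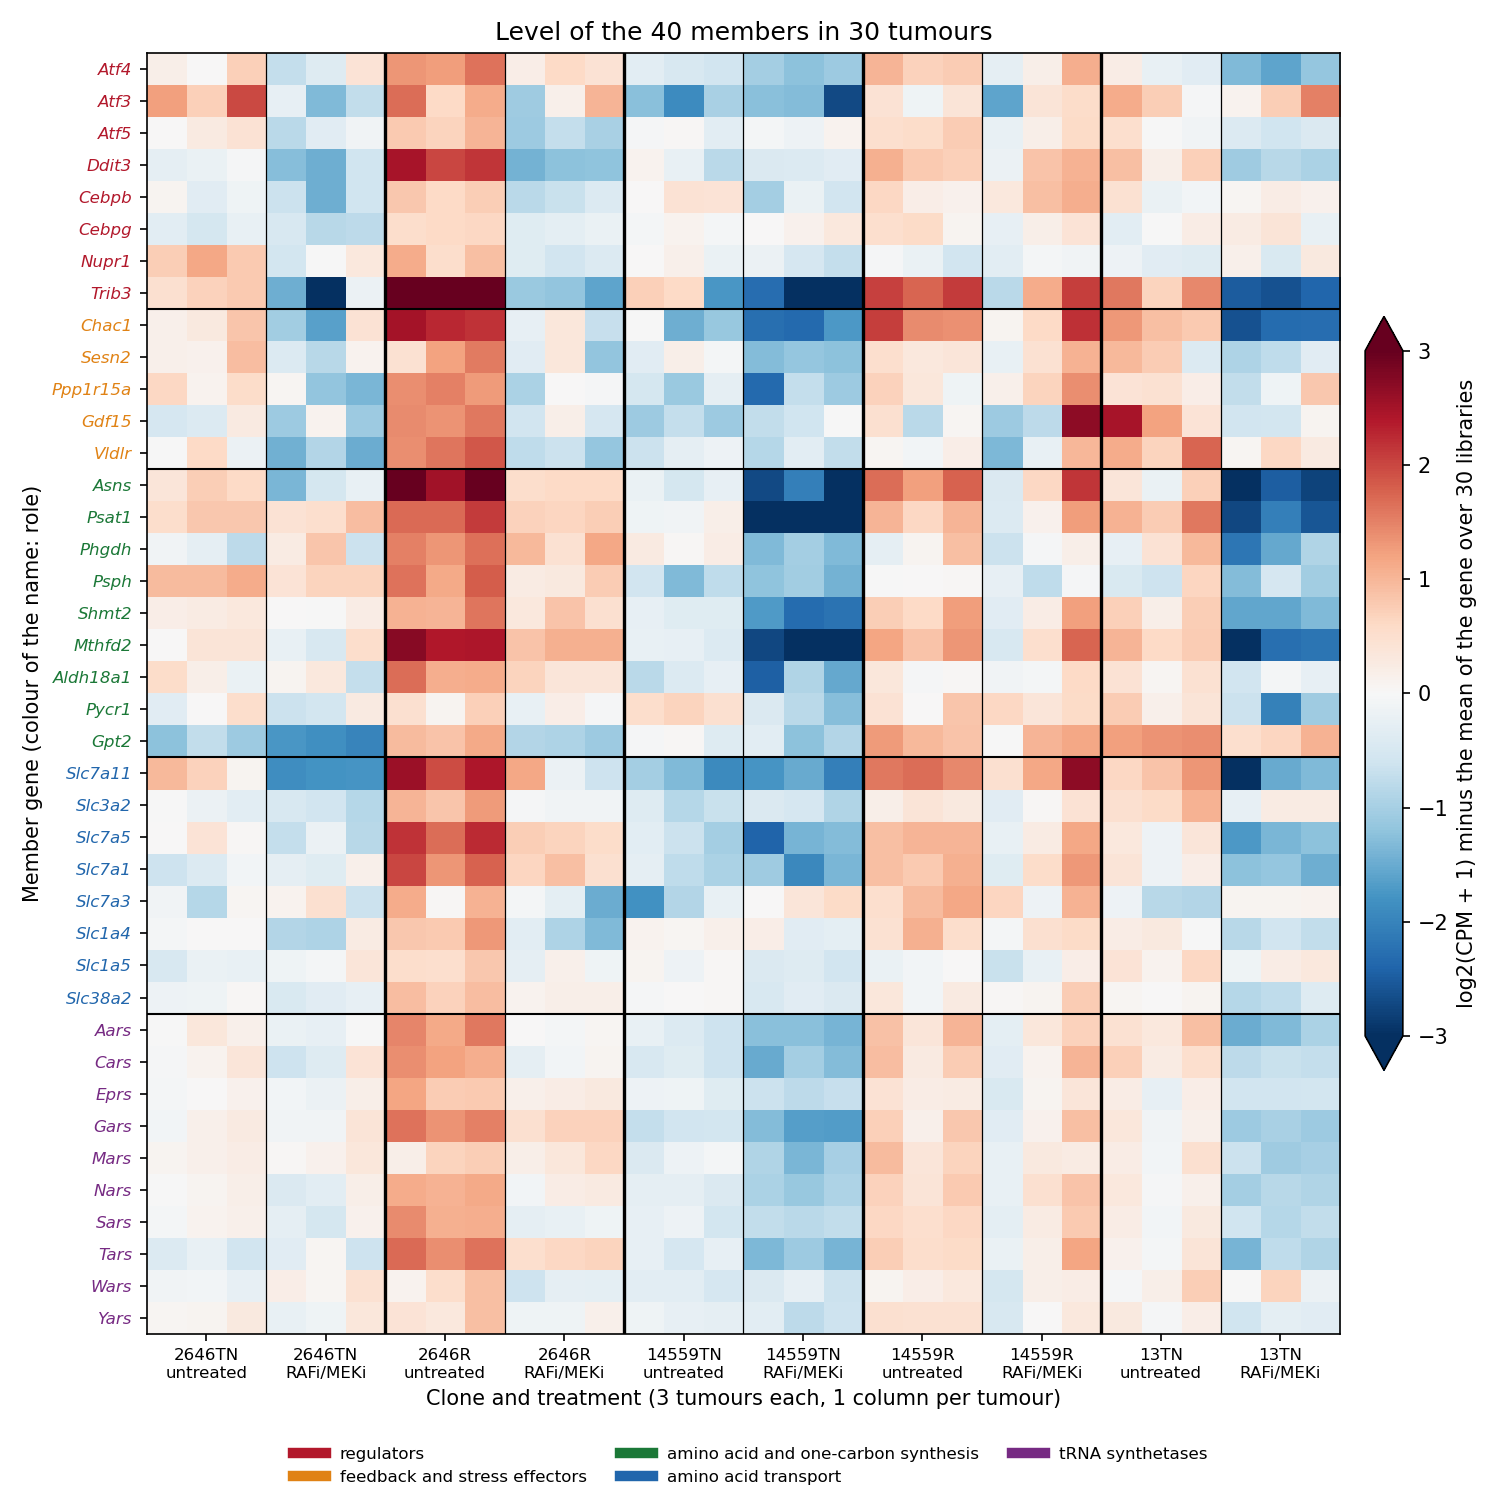
Level of each of the 40 members (rows, grouped by role) in each of the 30 tumours (columns, 3 per clone and treatment), as log2(CPM + 1) minus the gene's mean over all libraries, red for higher and blue for lower. The 3 untreated 2646R columns are red in nearly every row, the treated 14559TN and 13TN columns hold most of the deep blue, and treated 14559R runs from blue to red over its 3 tumours.

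**Figure D2:**
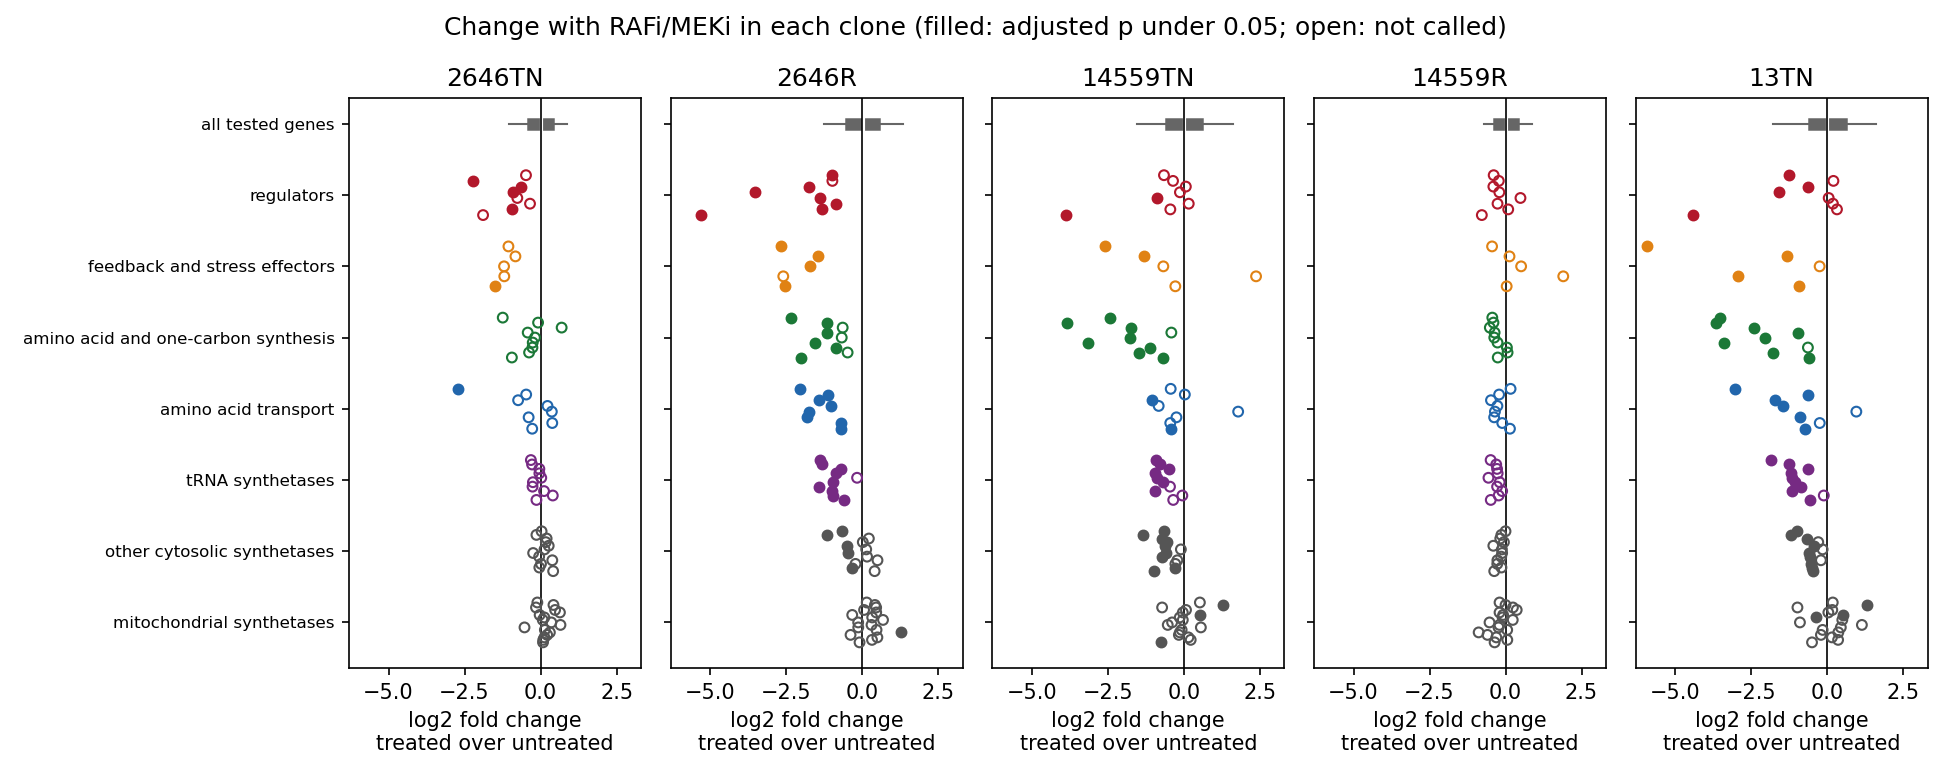
Log2 fold change with RAFi/MEKi of each member by role in each clone, with 2 other groups of synthetases and, at the top, all tested genes (thick bar, 25th to 75th percentile; thin line, 5th to 95th; white tick, median). Filled points passed an adjusted p under 0.05 in edgeR. All 40 members lie left of 0 in 2646R, 35 in 14559TN, 35 in 13TN, 33 in 2646TN and 30 in 14559R.

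Atf4, Atf5, Ddit3, Cebpg and Trib3 had their highest mean in untreated 2646R. Of the 8 regulators, 7 fell in 2646R, all but Atf3. In 2646TN and in 13TN 4 fell, and in 14559TN 2 did, with 0 higher in any clone. Atf4 itself fell in 2646R and 13TN. Its level was 1255, 1189 and 1549 CPM in untreated and 573, 751 and 666 CPM in treated 2646R. In 13TN it was 584, 426 and 394 CPM untreated and 199, 164 and 220.3 treated, and in both clones every treated tumour lay below the untreated ones. The log2 fold change of Atf4 by edgeR was -1.005 ± 0.28 in 2646R (adjusted p = 0.0127) and -1.27 ± 0.28 in 13TN (adjusted p = 0.00140). The Atf4 call in 2646R was lost without untreated replicate 3 or without treated replicate 1 (edgeR adjusted p = 0.0680 and 0.0815). It stood at 561, 498 and 811 CPM untreated and 303, 377 and 659 treated in 2646TN, where the groups overlapped (edgeR adjusted p = 0.425). In 14559TN, where it was 399.7, 353 and 332 CPM untreated and 245, 211 and 232 treated, the groups did not overlap, and the change of -0.66 ± 0.28 missed the threshold (edgeR adjusted p = 0.0851). In 14559R it was 1006, 806 and 847 CPM untreated, and the treated tumours measured 414, 558 and 1058 CPM, on both sides of the untreated ones.

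Ddit3 (chr10:127290774-127296288) encodes CHOP, a C/EBP family factor induced by ATF4 and linked to stress-induced cell death. Ddit3 stood at 96.0, 102 and 113 CPM in untreated and 47.7, 41.6 and 76.5 CPM in treated 2646TN tumours. The values in 2646R were 647, 468 and 522 CPM untreated and 42.8, 49.0 and 50.1 treated. In both of these clones the treated tumours lay below all untreated ones. Ddit3 in 14559TN measured 126, 99.3 and 66.6 CPM untreated and 86.3, 88.2 and 92.0 treated. Ddit3 in 14559R measured 244, 203 and 192 CPM untreated and 103, 211 and 241 treated. Clone 13TN had 219, 132 and 191 CPM untreated and 54.8, 65.1 and 60.4 treated. Every treated tumour of 13TN lay below the untreated ones and the groups overlapped in 14559TN and 14559R. By edgeR the Ddit3 log2 fold change was -0.90 ± 0.26 in 2646TN (adjusted p = 0.0487), -3.53 ± 0.27 in 2646R (adjusted p = 2.76e-09) and -1.59 ± 0.26 in 13TN (adjusted p = 3.64e-05). It was not called in 14559TN and 14559R. The Ddit3 call in 2646TN was lost without untreated replicates 1, 2 or 3 or without treated replicates 1 or 2 (edgeR adjusted p from 0.103 to 0.171). Between untreated clones Ddit3 was higher in the R clone by edgeR, with a log2 difference of 2.39 ± 0.26 between 2646R and 2646TN (adjusted p = 1.12e-07) and 1.13 ± 0.25 between 14559R and 14559TN (adjusted p = 0.00170). Ddit3 and the synthetase gene Mars overlap on opposite strands, and the counting used the strand.

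Trib3 (chr2:152337422-152344032) encodes a pseudokinase that is induced by ATF4 and CHOP and restrains both. Its promoter, printed earlier, holds the element just past the RefSeq start. In 2646TN, Trib3 measured 19.1, 22.4 and 24.0 CPM untreated and 4.24, 0.649 and 11.9 CPM treated. Trib3 in 2646R went from 209.6, 163 and 220.4 CPM to 5.64, 5.39 and 3.80. Treated Trib3 was below every untreated value in both clones. For 14559TN, the level was 22.6, 20.9 and 3.28 CPM without and 1.99, 0.627 and 0.571 with treatment. Untreated 14559R had 58.6, 47.4 and 60.8 CPM, against 7.26, 30.0 and 60.4 treated. The 13TN tumours held 42.6, 22.1 and 38.2 CPM untreated and 1.58, 1.36 and 1.76 treated. Treated Trib3 was below all untreated values in 14559TN and 13TN and the groups overlapped in 14559R. edgeR gave Trib3 a log2 fold change of -5.305 ± 0.67 in 2646R (adjusted p = 9.08e-06), -3.88 ± 0.94 in 14559TN (adjusted p = 0.00352) and -4.43 ± 0.80 in 13TN (adjusted p = 2.18e-04). The Trib3 change in 2646TN and 14559R was not called. Without treatment the Trib3 log2 difference by edgeR was 3.17 ± 0.57 between 2646R and 2646TN (adjusted p = 1.87e-04) and 1.85 ± 0.58 between 14559R and 14559TN (adjusted p = 0.0245).

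Atf3 (chr1:191170296-191218039) encodes an early stress factor that ATF4 and several other pathways induce. Its level in 2646TN was 31.7, 21.8 and 53.5 CPM without and 10.7, 4.54 and 7.32 CPM with RAFi/MEKi. For 2646R these were 43.6, 19.9 and 29.2 CPM untreated and 5.64, 14.5 and 27.3 treated. Treated Atf3 was below all untreated values in 2646TN and overlapped them in 2646R. Untreated 14559TN had 4.82, 2.77 and 6.05 CPM and treated 14559TN 4.83, 4.60 and 1.14. In 14559R they were 17.7, 11.8 and 17.1 CPM untreated and 3.63, 17.1 and 19.4 treated. In 13TN it measured 29.2, 22.1 and 12.6 CPM and, treated, 14.0, 22 and 38.5. The Atf3 groups overlapped in 14559TN, 14559R and 13TN. Atf3 fell by edgeR, with a log2 fold change of -2.24 ± 0.59 in 2646TN (adjusted p = 0.0334). No call was made in 2646R, 14559TN, 14559R and 13TN. Atf3 was no longer called in 2646TN without untreated replicates 1 or 3 or without treated replicates 1, 2 or 3 (edgeR adjusted p from 0.0586 to 0.143). Atf5 (chr7:44812256-44816658) encodes a factor related to ATF4 that is translated under the same control. The untreated 2646TN tumours held 274, 328 and 372 CPM of Atf5, and the treated ones 154, 215 and 252. In its partner 2646R they were 474, 435 and 553 CPM and, treated, 128, 167 and 138. In both of these clones the treated tumours lay below all untreated ones. In 14559TN the values were 267, 281 and 221 CPM untreated and 261, 246 and 296 treated. For 14559R it was 385, 399 and 467 CPM untreated and 235, 309 and 405 treated. Atf5 in 13TN stood at 391, 271 and 254 CPM untreated and 206, 181 and 202 treated. For Atf5 the treated 13TN tumours were all below the untreated ones and the groups overlapped in 14559TN and 14559R. By edgeR the Atf5 log2 fold change was -0.65 ± 0.18 in 2646TN (adjusted p = 0.0375), -1.76 ± 0.19 in 2646R (adjusted p = 6.22e-08) and -0.64 ± 0.18 in 13TN (adjusted p = 0.00739). Atf5 passed no test in 14559TN and 14559R. The Atf5 call in 2646TN was lost without untreated replicates 2 or 3 or without treated replicates 1 or 2 and when only the compared groups were fitted (edgeR adjusted p from 0.0702 to 0.195). Atf5 was no longer called in 13TN without untreated replicate 1 or without treated replicate 2 (edgeR adjusted p = 0.137 and 0.0547). Between untreated clones Atf5 was higher in the R clone by edgeR, with a log2 difference of 0.59 ± 0.18 between 2646R and 2646TN (adjusted p = 0.0110) and 0.70 ± 0.18 between 14559R and 14559TN (adjusted p = 0.00445).

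The other regulators are Cebpb, Cebpg and Nupr1. Cebpb and Cebpg encode C/EBP factors, of which C/EBP gamma is a common partner of ATF4, and Nupr1 a small chromatin protein of the stress response whose promoter holds the element. Cebpb ran from 8.12 to 52.0 CPM over the 30 tumours, and fell in 2646R (-1.39 ± 0.24, edgeR adjusted p = 7.85e-05) and 14559TN (-0.88 ± 0.24, edgeR adjusted p = 0.00623). For Cebpb in 14559TN the call ended without treated replicate 1 (edgeR adjusted p = 0.0628). Its highest group mean was that of treated 14559R. Cebpg ran from 31.8 to 88.2 CPM and fell in 2646R (-0.87 ± 0.17, edgeR adjusted p = 4.36e-04). Part of Cebpg shares its strand and exon bases with the predicted gene Gm44836, so its count is uncertain. Nupr1 ran from 136 to 503 CPM. It fell in 2646R (-1.33 ± 0.20, edgeR adjusted p = 1.71e-05) and in 2646TN (-0.95 ± 0.20, edgeR adjusted p = 0.00414), and its highest mean was in untreated 2646TN.

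**Figure D3:**
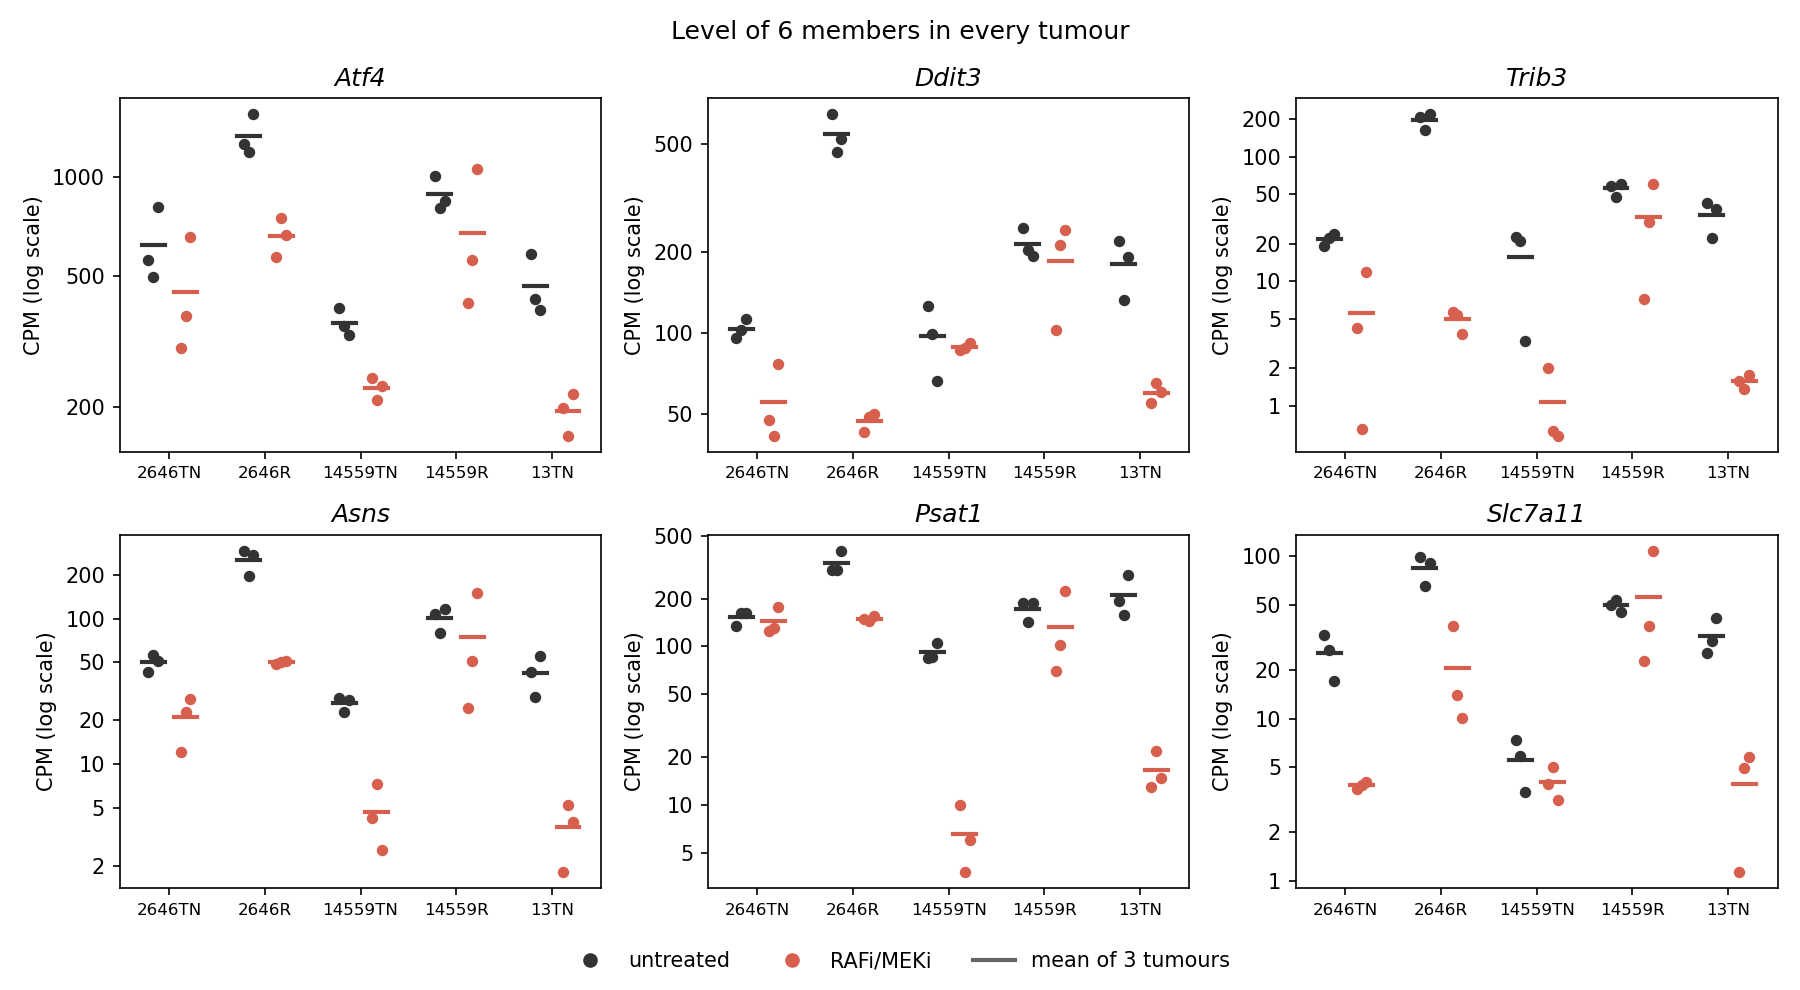
CPM on a log scale of Atf4, Ddit3, Trib3, Asns, Psat1 and Slc7a11 in each tumour (points) by clone, untreated in black and RAFi/MEKi in red, with the mean of 3 tumours as a bar. The mean of untreated 2646R is the highest in all 6 panels, and the treated Psat1 values lie below the untreated ones in 2646R, 14559TN and 13TN and overlap them in 2646TN (134 to 164 CPM untreated, 126 to 178 CPM treated).

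The feedback and stress effectors are Chac1, Sesn2, Ppp1r15a, Gdf15 and Vldlr. In 2646R and in 13TN 4 of the 5 fell. In 14559TN 2 fell and in 2646TN 1, and 0 rose in any clone. All but Gdf15 had their highest mean in untreated 2646R.

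Chac1 (chr2:119351229-119354381) encodes an enzyme that degrades glutathione, a marker of the ATF4 and CHOP arm. Levels of Chac1 in 2646TN were 5.79, 6.55 and 9.89 CPM untreated and 1.98, 0.974 and 7.32 treated. The 2646R tumours held 33.4, 28.4 and 26.5 CPM untreated and 4.12, 6.79 and 2.78 treated. Treated Chac1 was below all untreated values in 2646R and overlapped them in 2646TN. The 14559TN tumours held 5.08, 1.23 and 1.76 CPM and, when treated, 0.284, 0.209 and 0.857. The 14559R values ran 24.7, 15.3 and 14.9 CPM untreated and 5.44, 8.30 and 26.8 treated. For 13TN the figures were 14.1, 10.4 and 9.54 CPM untreated and 0, 0.227 and 0.252 treated. Chac1 in 14559TN and 13TN was below every untreated value when treated and the groups overlapped in 14559R. edgeR gave Chac1 a log2 fold change of -2.68 ± 0.51 in 2646R (adjusted p = 3.93e-04) and -2.601 ± 0.91 in 14559TN (adjusted p = 0.0325). In 13TN the treated tumours held 2 counts in all against 131 untreated, a ratio of 73.7 untreated over treated (95% interval 20.4 to 609, counting error only), and edgeR called the fall (adjusted p = 6.41e-06). In 2646TN and 14559R, Chac1 was not called. Chac1 was no longer called in 14559TN without untreated replicate 1 or without treated replicates 1 or 2 (edgeR adjusted p from 0.0999 to 0.245). Without treatment the Chac1 log2 difference by edgeR was 1.98 ± 0.49 between 2646R and 2646TN (adjusted p = 0.00220) and 2.72 ± 0.56 between 14559R and 14559TN (adjusted p = 6.21e-04).

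Sesn2 (chr4:132492032-132510501) encodes Sestrin2, a leucine sensor that holds back mTORC1. Sesn2 stood at 14.9, 14.6 and 26.5 CPM in untreated and 9.88, 7.14 and 14.4 CPM in treated 2646TN tumours. The values in 2646R were 18.9, 32.2 and 41.2 CPM untreated and 10.4, 17.3 and 5.31 treated. For Sesn2 neither clone had overlapping treatment groups, and the treated tumours were lower. Sesn2 in 14559TN measured 10.4, 15.4 and 12.9 CPM untreated and 4.83, 5.43 and 5.14 treated. Sesn2 in 14559R measured 19.4, 16.9 and 17.3 CPM untreated and 11.3, 18.8 and 28.8 treated. Clone 13TN had 27.0, 23.6 and 9.85 CPM untreated and 6.54, 7.49 and 10.3 treated. Every treated tumour of 14559TN lay below the untreated ones and the groups overlapped in 14559R and 13TN. Sesn2 fell by edgeR, with a log2 fold change of -1.46 ± 0.37 in 2646R (adjusted p = 0.00563), -1.31 ± 0.43 in 14559TN (adjusted p = 0.0212) and -1.33 ± 0.39 in 13TN (adjusted p = 0.00999). It was not called in 2646TN and 14559R. The Sesn2 call in 14559TN was lost without untreated replicates 2 or 3 or without treated replicates 1, 2 or 3 (edgeR adjusted p from 0.0538 to 0.0760). For Sesn2 in 13TN the call ended without untreated replicate 1 or without treated replicate 1 (edgeR adjusted p = 0.0803 and 0.0634). Vldlr (chr19:27216484-27254231) encodes a lipoprotein receptor that ATF4 is known to induce. In 2646TN, Vldlr measured 24.2, 37.7 and 21.6 CPM untreated and 8.47, 13.0 and 8.08 CPM treated. Vldlr in 2646R went from 66.2, 76.9 and 91.8 CPM to 14.1, 15.5 and 10.4. In both of these clones the treated tumours lay below all untreated ones. For 14559TN, the level was 15.5, 20.3 and 21.9 CPM without and 13.1, 19.6 and 14.3 with treatment. Untreated 14559R had 25.7, 23.3 and 28.3 CPM, against 9.07, 20.8 and 50.01 treated. The 13TN tumours held 54.8, 39.9 and 84.9 CPM untreated and 25.5, 38.1 and 30.0 treated. Treated Vldlr was below all untreated values in 13TN and the groups overlapped in 14559TN and 14559R. By edgeR the Vldlr log2 fold change was -1.50 ± 0.41 in 2646TN (adjusted p = 0.0397), -2.55 ± 0.38 in 2646R (adjusted p = 3.53e-05) and -0.93 ± 0.36 in 13TN (adjusted p = 0.0499). The Vldlr change in 14559TN and 14559R was not called. The Vldlr call in 2646TN was lost without untreated replicates 1, 2 or 3 or without treated replicates 1, 2 or 3 (edgeR adjusted p from 0.0505 to 0.157). Vldlr was no longer called in 13TN without untreated replicates 1 or 3 or without treated replicates 1, 2 or 3 and with median-of-ratios factors (edgeR adjusted p from 0.0597 to 0.293). Between untreated clones Vldlr was higher in the R clone by edgeR, with a log2 difference of 1.50 ± 0.36 between 2646R and 2646TN (adjusted p = 0.00220).

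Ppp1r15a (chr7:45522916-45526268) encodes GADD34, the phosphatase subunit that removes the phosphate from eIF2 alpha and ends the response. Its level in 2646TN was 31.2, 21.5 and 29.4 CPM without and 20.6, 8.12 and 7.07 CPM with RAFi/MEKi. For 2646R these were 53.6, 58.5 and 49.2 CPM untreated and 9.77, 19.9 and 19.2 treated. Treated Ppp1r15a was below every untreated value in both clones. Untreated 14559TN had 13.5, 8.60 and 16.4 CPM and treated 14559TN 3.12, 11.7 and 8.85. In 14559R they were 32.4, 25.2 and 18.1 CPM untreated and 22.2, 32.2 and 53.8 treated. In 13TN it measured 26.5, 27.5 and 22.8 CPM and, treated, 11.5, 18.1 and 35.5. The Ppp1r15a groups overlapped in 14559TN, 14559R and 13TN. edgeR gave Ppp1r15a a log2 fold change of -1.73 ± 0.41 in 2646R (adjusted p = 0.00426). No call was made in 2646TN, 14559TN, 14559R and 13TN. Gdf15 (chr8:70629393-70632456) encodes a secreted stress hormone, and was the member with the fewest counts. The untreated 2646TN tumours held 0.504, 0.623 and 1.57 CPM of Gdf15, and the treated ones 0, 1.30 and 0. In its partner 2646R they were 4.71, 4.50 and 5.46 CPM and, treated, 0.434, 1.41 and 0.506. Treated Gdf15 was below all untreated values in 2646R and overlapped them in 2646TN. In 14559TN the values were 0, 0.307 and 0 CPM untreated and 0.284, 0.418 and 1.14 treated. For 14559R it was 1.99, 0.231 and 1.22 CPM untreated and 0, 0.244 and 12.9 treated. Gdf15 in 13TN stood at 10.96, 3.97 and 1.85 CPM untreated and 0.451, 0.454 and 1.26 treated. For Gdf15 the treated 13TN tumours were all below the untreated ones and the groups overlapped in 14559TN and 14559R. Gdf15 fell by edgeR, with a log2 fold change of -2.94 ± 1.08 in 13TN (adjusted p = 0.0384). Untreated 14559TN held 1 count and treated 14559TN 7, a ratio of 6.62 (95% interval 1.19 to 261, counting error only). Gdf15 passed no test in 2646TN, 2646R, 14559TN and 14559R. Gdf15 was no longer called in 13TN without untreated replicate 1 or without treated replicates 1, 2 or 3 (edgeR adjusted p from 0.0534 to 0.234).

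Among the synthesis enzymes the medians were lowest in 13TN and 14559TN. Of the 9 genes, 8 fell in 14559TN (median -1.73), all but Psph, and 8 in 13TN (median -2.06), all but Aldh18a1. In 2646R 6 fell (median -1.15), while Phgdh, Shmt2 and Pycr1 were not called. In 2646TN 0 of 9 were called (median -0.27) and in 14559R 0 (median -0.36).

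Asns (chr6:7675169-7693254) encodes asparagine synthetase, the classic gene of the amino acid response. Levels of Asns in 2646TN were 43.3, 56.4 and 50.8 CPM untreated and 12.1, 22.7 and 28.3 treated. The 2646R tumours held 294, 196 and 273 CPM untreated and 48.6, 50.6 and 51.1 treated. In both of these clones the treated tumours lay below all untreated ones. The 14559TN tumours held 28.7, 22.7 and 27.7 CPM and, when treated, 4.26, 7.31 and 2.57. The 14559R values ran 108, 79.8 and 116 CPM untreated and 24.5, 51.3 and 149.5 treated. For 13TN the figures were 43.1, 28.8 and 55.4 CPM untreated and 1.80, 5.22 and 4.03 treated. Asns in 14559TN and 13TN was below every untreated value when treated and the groups overlapped in 14559R. By edgeR the Asns log2 fold change was -2.34 ± 0.43 in 2646R (adjusted p = 5.11e-04), -2.42 ± 0.56 in 14559TN (adjusted p = 0.00251) and -3.51 ± 0.57 in 13TN (adjusted p = 6.50e-05). In 2646TN and 14559R, Asns was not called. Between untreated clones Asns was higher in the R clone by edgeR, with a log2 difference of 2.34 ± 0.43 between 2646R and 2646TN (adjusted p = 2.13e-04) and 1.93 ± 0.44 between 14559R and 14559TN (adjusted p = 0.00292).

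Psat1 (chr19:15904678-15947337) encodes the transaminase of serine synthesis. Psat1 stood at 134, 164 and 163 CPM in untreated and 126, 131 and 178 CPM in treated 2646TN tumours. The values in 2646R were 306, 303 and 402 CPM untreated and 149.8, 145 and 155 treated. Treated Psat1 was below all untreated values in 2646R and overlapped them in 2646TN. Psat1 in 14559TN measured 84.3, 85.7 and 106 CPM untreated and 9.94, 3.76 and 6.00 treated. Psat1 in 14559R measured 189, 144 and 188 CPM untreated and 69.6, 102 and 224 treated. Clone 13TN had 193, 158 and 280.3 CPM untreated and 13.1, 21.8 and 14.9 treated. Every treated tumour of 14559TN and 13TN lay below the untreated ones and the groups overlapped in 14559R. edgeR gave Psat1 a log2 fold change of -1.17 ± 0.30 in 2646R (adjusted p = 0.00745), -3.84 ± 0.39 in 14559TN (adjusted p = 1.24e-07) and -3.66 ± 0.35 in 13TN (adjusted p = 3.36e-08). It was not called in 2646TN and 14559R. Without treatment the Psat1 log2 difference by edgeR was 1.13 ± 0.30 between 2646R and 2646TN (adjusted p = 0.00477) and 0.91 ± 0.30 between 14559R and 14559TN (adjusted p = 0.0305). Phgdh (chr3:98313170-98339990) encodes the enzyme that opens the same pathway. In 2646TN, Phgdh measured 6.05, 5.299 and 3.37 CPM untreated and 7.91, 12.3 and 3.79 CPM treated. Phgdh in 2646R went from 20.6, 18.0 and 22.7 CPM to 13.9, 9.37 and 15.9. The Phgdh groups overlapped in 2646TN, and in 2646R every treated tumour was the lower. For 14559TN, the level was 8.12, 6.76 and 7.82 CPM without and 1.99, 2.72 and 2.00 with treatment. Untreated 14559R had 5.24, 6.94 and 13.2 CPM, against 3.85, 6.35 and 7.58 treated. The 13TN tumours held 5.36, 9.18 and 13.8 CPM untreated and 0.676, 1.59 and 3.02 treated. Treated Phgdh was below all untreated values in 14559TN and 13TN and the groups overlapped in 14559R. Phgdh fell by edgeR, with a log2 fold change of -1.73 ± 0.47 in 14559TN (adjusted p = 0.00520) and -2.41 ± 0.47 in 13TN (adjusted p = 1.81e-04). The Phgdh change in 2646TN, 2646R and 14559R was not called. Untreated Phgdh was called higher in the R clone by edgeR, by 2.06 ± 0.40 between 2646R and 2646TN (adjusted p = 1.56e-04) on the log2 scale.

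Shmt2 (chr10:127517123-127522444) encodes the mitochondrial enzyme that splits serine into glycine and a folate-bound carbon. Its level in 2646TN was 121, 124 and 131 CPM without and 106, 104 and 121 CPM with RAFi/MEKi. For 2646R these were 216, 212 and 319 CPM untreated and 131, 190.2 and 146 treated. Treated Shmt2 was below all untreated values in 2646R and overlapped them in 2646TN. Untreated 14559TN had 88.6, 81.1 and 80.9 CPM and treated 14559TN 31.8, 20.3 and 21.7. In 14559R they were 176, 159 and 249.9 CPM untreated and 82.1, 123 and 248 treated. In 13TN it measured 172, 118 and 174 CPM and, treated, 35.0, 34.9 and 41.5. In 14559TN and 13TN treated Shmt2 lay entirely below untreated and the groups overlapped in 14559R. By edgeR the Shmt2 log2 fold change was -1.77 ± 0.30 in 14559TN (adjusted p = 7.31e-05) and -2.06 ± 0.29 in 13TN (adjusted p = 5.63e-06). No call was made in 2646TN, 2646R and 14559R. Between untreated clones Shmt2 was higher in the R clone by edgeR, with a log2 difference of 0.99 ± 0.27 between 2646R and 2646TN (adjusted p = 0.00563) and 1.22 ± 0.27 between 14559R and 14559TN (adjusted p = 0.00188). Mthfd2 (chr6:83305691-83325908) encodes the next mitochondrial folate enzyme. The untreated 2646TN tumours held 87.9, 115 and 114 CPM of Mthfd2, and the treated ones 74.8, 62.3 and 126. In its partner 2646R they were 586, 462 and 470.1 CPM and, treated, 158, 182 and 182. The Mthfd2 groups overlapped in 2646TN, and in 2646R every treated tumour was the lower. In 14559TN the values were 74.9, 73.4 and 65.0 CPM untreated and 12.2, 6.89 and 4.86 treated. For 14559R it was 199.7, 158 and 219 CPM untreated and 61.7, 125 and 295 treated. Mthfd2 in 13TN stood at 177, 133 and 147 CPM untreated and 8.12, 17.2 and 18.4 treated. For Mthfd2 the treated 14559TN and 13TN tumours were all below the untreated ones and the groups overlapped in 14559R. edgeR gave Mthfd2 a log2 fold change of -1.54 ± 0.37 in 2646R (adjusted p = 0.00531), -3.16 ± 0.47 in 14559TN (adjusted p = 2.86e-05) and -3.39 ± 0.43 in 13TN (adjusted p = 3.71e-06). Mthfd2 passed no test in 2646TN and 14559R. Without treatment the Mthfd2 log2 difference by edgeR was 2.26 ± 0.38 between 2646R and 2646TN (adjusted p = 9.11e-05) and 1.44 ± 0.38 between 14559R and 14559TN (adjusted p = 0.00867).

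Gpt2 (chr8:85492576-85527560) encodes mitochondrial alanine transaminase. Levels of Gpt2 in 2646TN were 10.6, 15.3 and 11.7 CPM untreated and 7.06, 6.49 and 5.80 treated. The 2646R tumours held 50.9, 47.6 and 58.5 CPM untreated and 13.7, 13.1 and 11.6 treated. For Gpt2 neither clone had overlapping treatment groups, and the treated tumours were lower. The 14559TN tumours held 25.4, 26.4 and 19.7 CPM and, when treated, 20.7, 10.4 and 13.7. The 14559R values ran 64.6, 52.0 and 47.6 CPM untreated and 25.6, 53.2 and 58.8 treated. For 13TN the figures were 61.8, 67.5 and 69.5 CPM untreated and 37.2, 40.8 and 54.9 treated. Gpt2 in 13TN was below every untreated value when treated and the groups overlapped in 14559TN and 14559R. Gpt2 fell by edgeR, with a log2 fold change of -2.02 ± 0.24 in 2646R (adjusted p = 3.81e-07), -0.68 ± 0.25 in 14559TN (adjusted p = 0.0397) and -0.58 ± 0.22 in 13TN (adjusted p = 0.0450). In 2646TN and 14559R, Gpt2 was not called. The Gpt2 call in 14559TN was lost without untreated replicates 1 or 2 or without treated replicates 2 or 3, with median-of-ratios factors and by DESeq2 (adjusted p from 0.0538 to 0.226). For Gpt2 in 13TN the call ended without untreated replicates 1, 2 or 3 or without treated replicates 1 or 2, with median-of-ratios factors, without the filter on low counts and by DESeq2 (adjusted p from 0.0600 to 0.222). Untreated Gpt2 was called higher in the R clone by edgeR, by 2.07 ± 0.25 between 2646R and 2646TN (adjusted p = 1.02e-07) and 1.20 ± 0.23 between 14559R and 14559TN (adjusted p = 2.57e-04) on the log2 scale. The remaining enzymes are Psph, the phosphatase that completes serine synthesis, and Aldh18a1 and Pycr1, which make proline. Psph ran from 4.28 to 48.6 CPM over the 30 tumours and fell in 2646R (-1.15 ± 0.27, edgeR adjusted p = 0.00243) and 13TN (-0.96 ± 0.31, adjusted p = 0.0180). Psph was no longer called in 13TN without untreated replicate 3 or without treated replicates 1 or 3 and when only the compared groups were fitted (edgeR adjusted p from 0.0672 to 0.377). Aldh18a1 ran from 2.27 to 56.2 CPM and fell in 2646R (-0.88 ± 0.28, edgeR adjusted p = 0.0237) and 14559TN (-1.10 ± 0.34, adjusted p = 0.0153). The Aldh18a1 call in 2646R was lost without untreated replicate 1 or without treated replicates 2 or 3 (edgeR adjusted p from 0.0909 to 0.191). For Aldh18a1 in 14559TN the call ended without untreated replicate 3 or without treated replicates 1 or 3 (edgeR adjusted p from 0.0572 to 0.117). Pycr1 ran from 2.495 to 24.4 CPM and fell in 14559TN (-1.47 ± 0.33, edgeR adjusted p = 8.89e-04) and 13TN (-1.77 ± 0.34, adjusted p = 1.25e-04).

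All 8 amino acid carriers fell in 2646R (median -1.27). In 13TN 6 fell, all but Slc7a3 and Slc1a5 (median -0.81). In 14559TN 2 fell, Slc7a5 and Slc38a2, and in 2646TN 1, Slc7a11.

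Slc7a11 (chr3:49892526-50443614) encodes xCT, the cystine importer that feeds glutathione synthesis. Slc7a11 stood at 32.8, 26.5 and 17.1 CPM in untreated and 3.67, 3.90 and 4.04 CPM in treated 2646TN tumours. The values in 2646R were 99.6, 65.6 and 90.4 CPM untreated and 36.9, 14.1 and 10.1 treated. In both of these clones the treated tumours lay below all untreated ones. Slc7a11 in 14559TN measured 7.36, 5.84 and 3.53 CPM untreated and 3.98, 5.01 and 3.14 treated. Slc7a11 in 14559R measured 50.1, 53.9 and 45.4 CPM untreated and 22.7, 37.1 and 108 treated. Clone 13TN had 25.3, 30.0 and 41.8 CPM untreated and 1.13, 4.99 and 5.79 treated. Every treated tumour of 13TN lay below the untreated ones and the groups overlapped in 14559TN and 14559R. By edgeR the Slc7a11 log2 fold change was -2.70 ± 0.60 in 2646TN (adjusted p = 0.0112), -2.05 ± 0.47 in 2646R (adjusted p = 0.00344) and -3.03 ± 0.58 in 13TN (adjusted p = 3.15e-04). It was not called in 14559TN and 14559R. The Slc7a11 call in 2646TN was lost without untreated replicate 1 (edgeR adjusted p = 0.0572). Between untreated clones Slc7a11 was higher in the R clone by edgeR, with a log2 difference of 1.75 ± 0.47 between 2646R and 2646TN (adjusted p = 0.00537) and 3.16 ± 0.55 between 14559R and 14559TN (adjusted p = 2.11e-04). Treated 2646R also stood above treated 2646TN, by 2.40 ± 0.60 (edgeR adjusted p = 0.00698), a call that was lost without treated 2646R replicate 1 (edgeR adjusted p = 0.0615).

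Slc7a5 (chr8:121881150-121907694) encodes LAT1, the importer of leucine and other large neutral amino acids. In 2646TN, Slc7a5 measured 35.0, 46.1 and 35.5 CPM untreated and 20.6, 30.5 and 18.9 CPM treated. Slc7a5 in 2646R went from 159, 112 and 166 CPM to 58.2, 55.3 and 51.1. Treated Slc7a5 was below every untreated value in both clones. For 14559TN, the level was 27.7, 21.8 and 16.6 CPM without and 5.68, 12.5 and 13.4 with treatment. Untreated 14559R had 65.6, 71.4 and 70.9 CPM, against 29.7, 41.5 and 78.3 treated. The 13TN tumours held 43.3, 31.0 and 44.6 CPM untreated and 9.70, 12.7 and 14.1 treated. Treated Slc7a5 was below all untreated values in 14559TN and 13TN and the groups overlapped in 14559R. edgeR gave Slc7a5 a log2 fold change of -1.41 ± 0.26 in 2646R (adjusted p = 2.48e-04), -1.05 ± 0.31 in 14559TN (adjusted p = 0.0120) and -1.70 ± 0.29 in 13TN (adjusted p = 5.56e-05). The Slc7a5 change in 2646TN and 14559R was not called. Slc7a5 was no longer called in 14559TN without untreated replicate 1 or without treated replicate 1 (edgeR adjusted p = 0.0814 and 0.0844). Without treatment the Slc7a5 log2 difference by edgeR was 1.91 ± 0.27 between 2646R and 2646TN (adjusted p = 2.38e-06) and 1.65 ± 0.28 between 14559R and 14559TN (adjusted p = 6.25e-05). Slc7a1 (chr5:148327410-148399904) encodes the main carrier of arginine and lysine. Its level in 2646TN was 36.03, 42.4 and 52.8 CPM without and 46.9, 43.5 and 63.1 CPM with RAFi/MEKi. For 2646R these were 229, 142 and 194 CPM untreated and 89.2, 106 and 79.2 treated. The Slc7a1 groups overlapped in 2646TN, and in 2646R every treated tumour was the lower. Untreated 14559TN had 46.4, 32.9 and 28.7 CPM and treated 14559TN 26.4, 14.0 and 21.1. In 14559R they were 105, 97.6 and 118 CPM untreated and 43.8, 83.03 and 141 treated. In 13TN it measured 73.5, 50.4 and 64.6 CPM and, treated, 23.5, 24.7 and 19.9. In 14559TN and 13TN treated Slc7a1 lay entirely below untreated and the groups overlapped in 14559R. Slc7a1 fell by edgeR, with a log2 fold change of -1.04 ± 0.28 in 2646R (adjusted p = 0.00967) and -1.47 ± 0.31 in 13TN (adjusted p = 6.63e-04). No call was made in 2646TN, 14559TN and 14559R. Slc7a1 was no longer called in 2646R without untreated replicate 1 or without treated replicate 3 (edgeR adjusted p = 0.0701 and 0.0511). Untreated Slc7a1 was called higher in the R clone by edgeR, by 2.10 ± 0.29 between 2646R and 2646TN (adjusted p = 5.11e-06) and 1.57 ± 0.30 between 14559R and 14559TN (adjusted p = 3.57e-04) on the log2 scale.

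Slc38a2 (chr15:96687392-96699730) encodes SNAT2, a sodium-coupled carrier of small neutral amino acids. The untreated 2646TN tumours held 355, 362 and 405 CPM of Slc38a2, and the treated ones 287, 309 and 330.1. In its partner 2646R they were 742, 637 and 744 CPM and, treated, 421, 444 and 442. In both of these clones the treated tumours lay below all untreated ones. In 14559TN the values were 384, 395 and 402 CPM untreated and 282, 313 and 290.5 treated. For 14559R it was 499, 369.7 and 473 CPM untreated and 403, 414 and 666 treated. Slc38a2 in 13TN stood at 410.0, 396 and 418 CPM untreated and 216, 231 and 299 treated. For Slc38a2 the treated 14559TN and 13TN tumours were all below the untreated ones and the groups overlapped in 14559R. By edgeR the Slc38a2 log2 fold change was -0.70 ± 0.14 in 2646R (adjusted p = 6.94e-04), -0.42 ± 0.15 in 14559TN (adjusted p = 0.0298) and -0.72 ± 0.15 in 13TN (adjusted p = 2.84e-04). Slc38a2 passed no test in 2646TN and 14559R. For Slc38a2 in 14559TN the call ended without untreated replicates 1, 2 or 3 or without treated replicates 1 or 3 (edgeR adjusted p from 0.0628 to 0.115). Between untreated clones Slc38a2 was higher in the R clone by edgeR, with a log2 difference of 0.92 ± 0.15 between 2646R and 2646TN (adjusted p = 8.82e-06). Slc7a3 (chrX:101079210-101086020) encodes another cationic amino acid carrier and was expressed at a low level. Levels of Slc7a3 in 2646TN were 2.27, 0.935 and 2.70 CPM untreated and 2.82, 3.90 and 1.26 treated. The 2646R tumours held 6.68, 2.604 and 6.28 CPM untreated and 2.39, 1.87 and 0.253 treated. The Slc7a3 groups overlapped in 2646TN, and in 2646R every treated tumour was the lower. The 14559TN tumours held 0, 0.922 and 2.02 CPM and, when treated, 2.56, 3.55 and 4.28. The 14559R values ran 3.99, 5.78 and 6.84 CPM untreated and 4.54, 2.20 and 6.31 treated. For 13TN the figures were 2.19, 0.992 and 0.923 CPM untreated and 2.71, 2.72 and 2.77 treated. Slc7a3 in 14559TN and 13TN was above every untreated value when treated and the groups overlapped in 14559R. edgeR gave Slc7a3 a log2 fold change of -1.74 ± 0.62 in 2646R (adjusted p = 0.0445). In 2646TN, 14559TN, 14559R and 13TN, Slc7a3 was not called. For Slc7a3 in 2646R the call ended without untreated replicates 1 or 3 or without treated replicates 2 or 3 and when only the compared groups were fitted (edgeR adjusted p from 0.0836 to 0.198). Without treatment the Slc7a3 log2 difference by edgeR was 2.46 ± 0.68 between 14559R and 14559TN (adjusted p = 0.00737).

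Among the other carriers, Slc3a2 encodes the heavy chain that pairs with LAT1 and xCT. It ran from 213 to 969 CPM and fell in 2646R (-1.13 ± 0.18, edgeR adjusted p = 2.09e-05) and 13TN (-0.63 ± 0.17, adjusted p = 0.00640). For Slc3a2 in 13TN the call ended without untreated replicate 3 or without treated replicate 1 (edgeR adjusted p = 0.0984 and 0.0857). Slc1a4, a carrier of alanine, serine and cysteine whose promoter holds the element beside the start, ran from 13.7 to 89.3 CPM. It fell in 2646R (-1.82 ± 0.26, edgeR adjusted p = 8.32e-06) and 13TN (-0.91 ± 0.26, adjusted p = 0.00888). Slc1a4 was no longer called in 13TN without treated replicate 1 (edgeR adjusted p = 0.0563). Slc1a5, the glutamine carrier ASCT2, ran from 51.0 to 144 CPM and fell in 2646R (-0.69 ± 0.17, edgeR adjusted p = 0.00476). The Slc1a5 call in 2646R was lost without untreated replicate 3 or without treated replicate 1 (edgeR adjusted p = 0.0518 and 0.0636).

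The cytosolic transfer RNA synthetases, which charge transfer RNAs with their amino acids, fell in 3 clones. Of the 10 members 9 fell in 2646R, all but Mars (median -0.95), and 9 in 13TN, all but Wars (median -1.11). In 14559TN 7 fell, all but Sars, Wars and Yars (median -0.75). In 2646TN and 14559R 0 were called (medians -0.089 and -0.28).

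Aars (chr8:111033144-111057664) encodes the synthetase for alanine. It carries the element on either side of its RefSeq start, which lies inside this span. Aars stood at 122, 153 and 136 CPM in untreated and 106, 102 and 121 CPM in treated 2646TN tumours. The values in 2646R were 336, 268 and 365 CPM untreated and 122, 116 and 128 treated. For Aars neither clone had overlapping treatment groups, and the treated tumours were lower. Aars in 14559TN measured 105, 91.9 and 78.9 CPM untreated and 50.8, 50.6 and 45.4 treated. Aars in 14559R measured 226, 157 and 249 CPM untreated and 98.6, 155 and 196 treated. Clone 13TN had 169, 152 and 229 CPM untreated and 43.1, 47.6 and 62.2 treated. Every treated tumour of 14559TN and 13TN lay below the untreated ones and the groups overlapped in 14559R. Aars fell by edgeR, with a log2 fold change of -1.41 ± 0.19 in 2646R (adjusted p = 4.21e-06), -0.91 ± 0.20 in 14559TN (adjusted p = 9.69e-04) and -1.85 ± 0.20 in 13TN (adjusted p = 2.42e-08). It was not called in 2646TN and 14559R. Untreated Aars was called higher in the R clone by edgeR, by 1.24 ± 0.19 between 2646R and 2646TN (adjusted p = 8.82e-06) and 1.20 ± 0.20 between 14559R and 14559TN (adjusted p = 3.31e-05) on the log2 scale. Gars (chr6:55038007-55079500) encodes the synthetase for glycine. In 2646TN, Gars measured 193, 226 and 248 CPM untreated and 189.7, 191 and 268 CPM treated. Gars in 2646R went from 637, 522 and 585 CPM to 287, 332 and 330.2. The Gars groups overlapped in 2646TN, and in 2646R every treated tumour was the lower. For 14559TN, the level was 124, 137 and 139 CPM without and 82.1, 64.1 and 62.8 with treatment. Untreated 14559R had 335, 228 and 359 CPM, against 163, 224 and 384 treated. The 13TN tumours held 261, 189 and 226 CPM untreated and 94.9, 104 and 95.2 treated. Treated Gars was below all untreated values in 14559TN and 13TN and the groups overlapped in 14559R. By edgeR the Gars log2 fold change was -0.88 ± 0.21 in 2646R (adjusted p = 0.00303), -0.94 ± 0.22 in 14559TN (adjusted p = 0.00156) and -1.20 ± 0.21 in 13TN (adjusted p = 8.25e-05). The Gars change in 2646TN and 14559R was not called. Between untreated clones Gars was higher in the R clone by edgeR, with a log2 difference of 1.39 ± 0.21 between 2646R and 2646TN (adjusted p = 8.77e-06) and 1.20 ± 0.21 between 14559R and 14559TN (adjusted p = 1.18e-04).

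Tars (chr15:11382301-11399665) encodes the synthetase for threonine. Its level in 2646TN was 106, 121 and 93.9 CPM without and 111, 146 and 91.1 CPM with RAFi/MEKi. For 2646R these were 459, 373 and 437 CPM untreated and 200.3, 215 and 225 treated. Treated Tars was below all untreated values in 2646R and overlapped them in 2646TN. Untreated 14559TN had 119, 99.0 and 118 CPM and treated 14559TN 54.5, 65.6 and 53.1. In 14559R they were 236, 202 and 208 CPM untreated and 121, 159 and 318 treated. In 13TN it measured 154, 135 and 184 CPM and, treated, 53.0, 82.8 and 74.3. In 14559TN and 13TN treated Tars lay entirely below untreated and the groups overlapped in 14559R. edgeR gave Tars a log2 fold change of -0.99 ± 0.23 in 2646R (adjusted p = 0.00256), -0.95 ± 0.24 in 14559TN (adjusted p = 0.00329) and -1.17 ± 0.23 in 13TN (adjusted p = 3.68e-04). No call was made in 2646TN and 14559R. Without treatment the Tars log2 difference by edgeR was 1.98 ± 0.23 between 2646R and 2646TN (adjusted p = 3.09e-07) and 0.94 ± 0.23 between 14559R and 14559TN (adjusted p = 0.00354). Cars (chr7:143557230-143600090) encodes the synthetase for cysteine. The untreated 2646TN tumours held 59.7, 66.7 and 79.1 CPM of Cars, and the treated ones 39.8, 46.7 and 82.0. In its partner 2646R they were 165, 145 and 132 CPM and, treated, 51.4, 58.3 and 65.3. The Cars groups overlapped in 2646TN, and in 2646R every treated tumour was the lower. In 14559TN the values were 44.2, 47.6 and 39.8 CPM untreated and 21.0, 29.9 and 24.3 treated. For 14559R it was 118, 75.1 and 105 CPM untreated and 48.5, 66.9 and 126 treated. Cars in 13TN stood at 102, 73.2 and 88.0 CPM untreated and 35.4, 38.8 and 37.0 treated. For Cars the treated 14559TN and 13TN tumours were all below the untreated ones and the groups overlapped in 14559R. Cars fell by edgeR, with a log2 fold change of -1.34 ± 0.25 in 2646R (adjusted p = 3.92e-04), -0.80 ± 0.27 in 14559TN (adjusted p = 0.0295) and -1.24 ± 0.26 in 13TN (adjusted p = 5.48e-04). Cars passed no test in 2646TN and 14559R. The Cars call in 14559TN was lost without untreated replicates 1 or 2 or without treated replicates 1 or 3 (edgeR adjusted p from 0.0696 to 0.130). Untreated Cars was called higher in the R clone by edgeR, by 1.10 ± 0.25 between 2646R and 2646TN (adjusted p = 0.00110) and 1.18 ± 0.26 between 14559R and 14559TN (adjusted p = 0.00135) on the log2 scale.

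Eprs (chr1:185363044-185428360) encodes the fused synthetase for glutamate and proline. Levels of Eprs in 2646TN were 309.9, 324 and 349 CPM untreated and 305, 284 and 366 treated. The 2646R tumours held 734, 541 and 555 CPM untreated and 357, 376 and 392 treated. Treated Eprs was below all untreated values in 2646R and overlapped them in 2646TN. The 14559TN tumours held 289, 294 and 249 CPM and, when treated, 205, 187 and 199. The 14559R values ran 437, 376 and 381 CPM untreated and 234, 339 and 410.4 treated. For 13TN the figures were 373, 271 and 369.8 CPM untreated and 215, 215 and 218 treated. Eprs in 14559TN and 13TN was below every untreated value when treated and the groups overlapped in 14559R. By edgeR the Eprs log2 fold change was -0.70 ± 0.15 in 2646R (adjusted p = 9.51e-04), -0.49 ± 0.15 in 14559TN (adjusted p = 0.0137) and -0.65 ± 0.15 in 13TN (adjusted p = 0.00126). In 2646TN and 14559R, Eprs was not called. For Eprs in 14559TN the call ended without untreated replicates 1 or 2 or without treated replicate 2 (edgeR adjusted p from 0.0542 to 0.0556). Between untreated clones Eprs was higher in the R clone by edgeR, with a log2 difference of 0.90 ± 0.15 between 2646R and 2646TN (adjusted p = 2.01e-05) and 0.52 ± 0.15 between 14559R and 14559TN (adjusted p = 0.0106). Nars encodes the synthetase for asparagine. Nars stood at 315, 335 and 362 CPM in untreated and 234, 254 and 360.1 CPM in treated 2646TN tumours. The values in 2646R were 688, 657 and 698 CPM untreated and 303, 372 and 385 treated. The Nars groups overlapped in 2646TN, and in 2646R every treated tumour was the lower. Nars in 14559TN measured 265, 266 and 237 CPM untreated and 165, 144 and 167 treated. Nars in 14559R measured 515, 415 and 553 CPM untreated and 274, 445 and 578 treated. Clone 13TN had 397, 312 and 355 CPM untreated and 158, 179 and 169 treated. Every treated tumour of 14559TN and 13TN lay below the untreated ones and the groups overlapped in 14559R. edgeR gave Nars a log2 fold change of -0.95 ± 0.17 in 2646R (adjusted p = 1.97e-04), -0.69 ± 0.18 in 14559TN (adjusted p = 0.00325) and -1.07 ± 0.18 in 13TN (adjusted p = 1.97e-05). It was not called in 2646TN and 14559R. Without treatment the Nars log2 difference by edgeR was 1.01 ± 0.17 between 2646R and 2646TN (adjusted p = 3.18e-05) and 0.95 ± 0.17 between 14559R and 14559TN (adjusted p = 1.50e-04).

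Mars, Sars, Wars and Yars serve methionine, serine, tryptophan and tyrosine. Mars ran from 23.8 to 123 CPM and fell in 14559TN (-0.90 ± 0.19, edgeR adjusted p = 6.13e-04) and 13TN (-1.14 ± 0.19, adjusted p = 1.98e-05). Sars ran from 129.5 to 634 CPM and fell in 2646R (-1.41 ± 0.18, edgeR adjusted p = 1.09e-06) and 13TN (-0.88 ± 0.18, adjusted p = 3.03e-04). Wars, which interferon also induces, ran from 28.8 to 86.3 CPM, with the smallest ratio of highest to lowest group mean of the 40 members (2.00), and fell in 2646R (-0.95 ± 0.22, edgeR adjusted p = 0.00215). Yars ran from 37.4 to 124 CPM and fell in 2646R (-0.60 ± 0.18, edgeR adjusted p = 0.0147) and 13TN (-0.58 ± 0.18, adjusted p = 0.0140). The Yars call in 2646R was lost without untreated replicate 3 or without treated replicates 1 or 2 (edgeR adjusted p from 0.0967 to 0.199). For Yars in 13TN the call ended without untreated replicates 1 or 3 or without treated replicate 1 (edgeR adjusted p from 0.0518 to 0.114).

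Without treatment the R clone of each pair carried more of these transcripts than its TN partner. In 2646R 30 of 40 members were higher than in 2646TN and 0 lower, beside 18.3% of all genes higher and 18.4% lower, with a median of 1.12 over the members. In 14559R 26 were higher than in 14559TN and 0 lower (12.9% and 11.2% of all genes), with a median of 0.94. The pairs share no tumours. They had 22 higher members in common, 73.3% of the calls in 2646R and 84.6% of the calls in 14559R: Atf4, Atf5, Ddit3, Trib3, Chac1, Asns, Psat1, Shmt2, Mthfd2, Gpt2, Slc3a2, Slc7a1, Slc7a5, Slc7a11, Aars, Cars, Eprs, Gars, Nars, Sars, Tars and Wars. The overlap of the pairs was counted for the members only, so no share of all genes stands beside it. Atf4 was higher by 1.09 ± 0.28 in the 2646TN/2646R pair (edgeR adjusted p = 0.00361) and by 1.29 ± 0.28 in the 14559TN/14559R pair (adjusted p = 0.00164). Between untreated 2646R and 2646TN edgeR called 8 of 12 tested macrophage markers, 6 of 17 dissociation stress genes and 2 of 4 tested erythroid genes lower in 2646R, and 0 of each higher. In untreated 14559R 9 of the 17 dissociation stress genes were higher than in 14559TN and 0 lower, with sums of 3307 to 3920.2 against 1732 to 1976 CPM, and in treated 14559R 8 were higher and 0 lower. Their part in the clone differences was not tested. By role, 6 of 8 regulators, 2 of 5 effectors, 7 of 9 synthesis enzymes, 7 of 8 carriers and 8 of 10 synthetases were higher in 2646R. In 14559R these were 4, 1, 6, 5 and 10. In the 2646TN/2646R pair 28 of the 30 calls held in every alternative fit, and those of Atf5 and Wars did not. In the 14559TN/14559R pair 20 of 26 did, and those of Trib3, Psat1, Psph, Slc7a3, Eprs and Wars did not. The untreated 14559TN tumours differed among themselves in Trib3 (22.6, 20.9 and 3.28 CPM), and without replicate 3 the log2 difference of Trib3 in that pair was 1.33 (edgeR adjusted p = 0.106).

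Under RAFi/MEKi, most members were higher in 14559R than in 14559TN. In treated 14559R 32 of 40 members were higher than in treated 14559TN and 0 lower (26.6% and 22.7% of all genes), with a median of 1.50. Trib3 stood 4.94 ± 0.87 apart (edgeR adjusted p = 8.91e-05), Chac1 4.88 ± 0.76 (adjusted p = 5.57e-06), Psat1 4.36 ± 0.39 (adjusted p = 6.23e-09), Mthfd2 4.33 ± 0.47 (adjusted p = 1.90e-07) and Asns 3.92 ± 0.54 (adjusted p = 4.27e-06). These 5 are a synthesis trio and a pair of stress genes. Without treated 14559R replicate 1, 34 were higher. Without treated 14559R replicate 3, 27 were higher, and Atf3, Gdf15, Phgdh, Psph and Yars were not called (edgeR adjusted p from 0.0637 to 0.288). Gdf15 then changed sign, from 2.79 ± 1.14 to -2.08. The same calls were also lost without other treated libraries (edgeR adjusted p from 0.0556 to 0.130). Gdf15 was lost without any 1 of the 14559TN replicates, and Atf3 without 14559TN replicate 3 or 14559R replicate 2. Phgdh was lost without 14559TN replicate 1 or 3, Psph without 14559TN replicate 3, and Yars without 14559TN replicate 2 or 3. With all libraries, the 8 not called were Atf5, Cebpg, Nupr1, Vldlr, Slc7a3, Slc1a4, Slc1a5 and Wars. In treated 2646R, 7 members were higher and 2 lower than in treated 2646TN, beside 10.0% and 10.1% of all genes, so these shares of 40 are closer to the background. The 7 were Gpt2, Tars and the carriers Slc7a11, Slc3a2, Slc7a5, Slc7a1 and Slc38a2, and all 7 were also among the 32 of the 14559TN/14559R pair. Overlap over all genes was not counted. The 2 lower ones were Atf5 (-0.52 ± 0.18, edgeR adjusted p = 0.0399) and Wars (-0.66 ± 0.22, adjusted p = 0.0335). Of the 7 higher calls, those of Slc7a5 and Slc38a2 held in every alternative fit. The other 5 were each lost without at least 1 library: Gpt2 and Tars without treated 2646TN replicate 3, Slc7a11 without treated 2646R replicate 1, Slc3a2 without either of these, and Slc7a1 without treated 2646TN replicate 1 or 2 or treated 2646R replicate 1 or 2 (edgeR adjusted p from 0.0538 to 0.137). Both lower calls were lost as well: Atf5 when only the compared groups were fitted and without treated 2646TN replicate 2 or 3 or treated 2646R replicate 1 or 3 (edgeR adjusted p from 0.0663 to 0.278), and Wars without treated 2646TN replicate 1 or 3 or any treated 2646R replicate (from 0.0655 to 0.176). Without treated 2646R replicate 1, 4 members were called in this comparison.

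The responses of the paired clones were also compared directly. In the 2646TN/2646R pair the response of 7 members was lower in 2646R than in 2646TN and that of 0 higher (1.78% and 2.36% of all genes). Ddit3 differed by -2.63 ± 0.37 (edgeR adjusted p = 1.77e-04), Slc1a4 by -1.43 ± 0.37 (adjusted p = 0.0227), Wars by -1.35 ± 0.31 (adjusted p = 0.00917) and Sars by -1.15 ± 0.25 (adjusted p = 0.00666). The others were Atf5 (-1.11 ± 0.26, edgeR adjusted p = 0.00959), Aars (-1.09 ± 0.27, adjusted p = 0.0175) and Slc1a5 (-1.07 ± 0.25, adjusted p = 0.00943). The Aars difference was lost without untreated 2646TN replicate 1 or treated 2646R replicate 1 (edgeR adjusted p = 0.0623 and 0.0501). Wars and Slc1a5 were not called in 2646TN, where every treated tumour lay above the untreated ones. The Slc1a4 difference was lost when only the compared groups were fitted and without any of 5 single libraries (untreated 2646TN replicate 1, untreated 2646R replicate 3, treated 2646TN replicate 3 and treated 2646R replicates 2 and 3, edgeR adjusted p from 0.0581 to 0.124). In the 14559TN/14559R pair the response of 5 members was higher in 14559R than in 14559TN and that of 0 lower (7.93% and 4.08% of all genes). Psat1 differed by 3.45 ± 0.50 (edgeR adjusted p = 5.73e-05) and Mthfd2 by 2.90 ± 0.60 (adjusted p = 0.00281). Pycr1 (1.54 ± 0.45, edgeR adjusted p = 0.0202), Shmt2 (1.40 ± 0.40, adjusted p = 0.0216) and Cebpb (1.37 ± 0.33, adjusted p = 0.00559) completed the list. Trib3, Chac1 and Asns were not called in this comparison. The Shmt2 difference was lost without treated 14559R replicate 3 (edgeR adjusted p = 0.0741). It was also lost when only the compared groups were fitted, without treated 14559TN replicate 2 or 3 and without untreated 14559R replicate 2 (edgeR adjusted p over all 5 fits from 0.0638 to 0.125), and Pycr1 was lost without treated 14559TN replicate 3 (0.0822) or untreated 14559R replicate 2 (0.0755). Without treated 14559R replicate 1, 12 members were called, and 3 without treated 14559TN replicate 3 or untreated 14559R replicate 2.

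**Figure D4:**
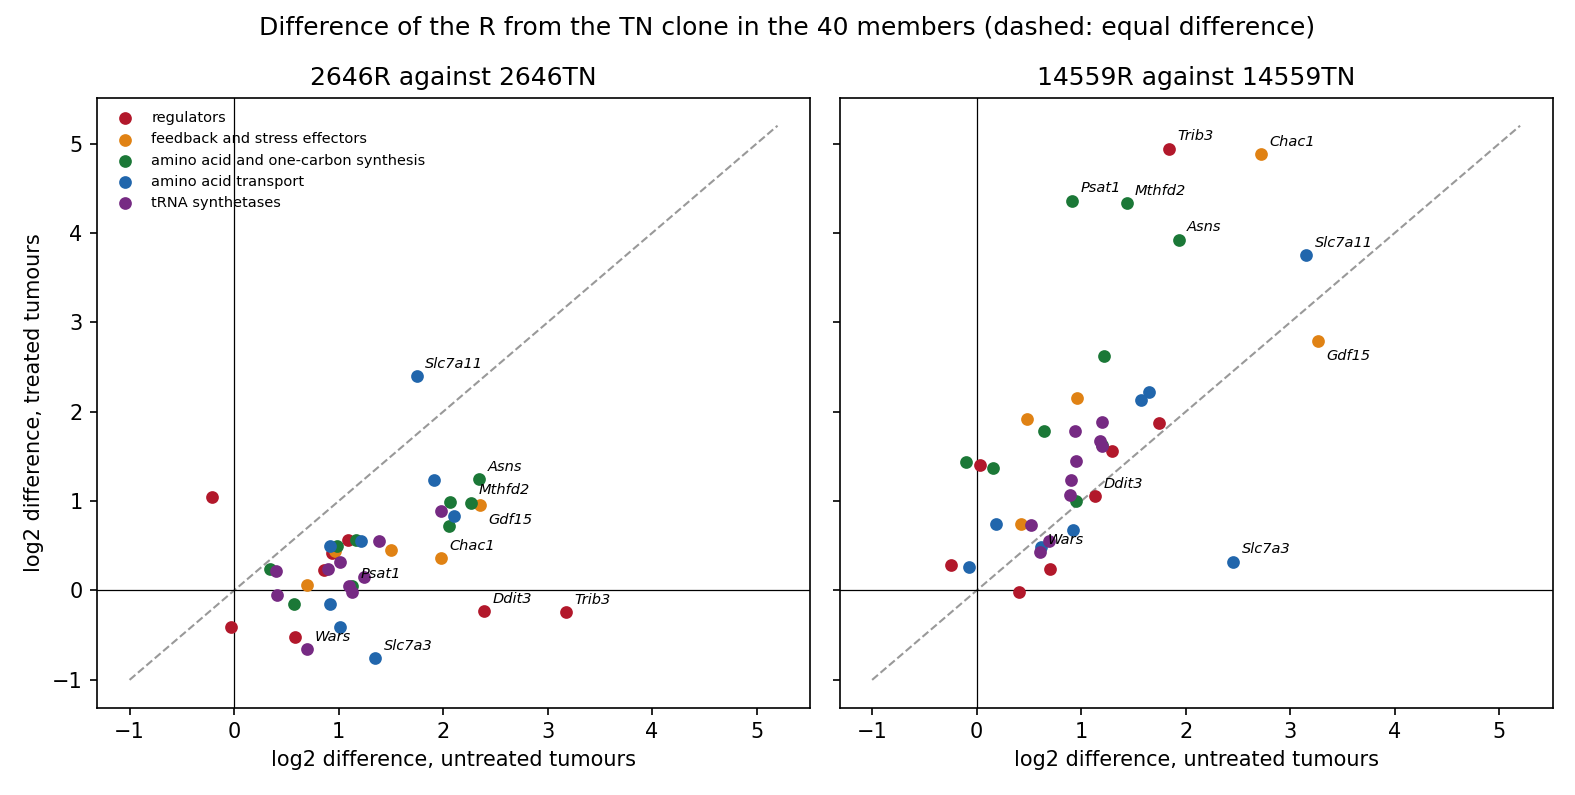
Log2 difference of the R clone from its TN partner for each member, untreated (horizontal) against treated (vertical), coloured by role, with the line of equal difference dashed. In the 2646TN/2646R pair most points lie below the line, and in the 14559TN/14559R pair Trib3, Chac1, Psat1, Mthfd2 and Asns lie well above it, at 3.92 to 4.94 when treated. For the 14559TN/14559R pair, edgeR called a difference between the responses for Psat1 and Mthfd2, and not for Trib3, Chac1 and Asns. The axes share no tumours.

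The 3 treated 14559R tumours differed from each other over nearly the whole set. Replicate 1 was the lowest of the 3 for 37 of 40 members and replicate 3 the highest for 37. In replicate 1, 34 members lay below every untreated 14559R tumour and 0 above, and in replicate 2 these counts were 25 and 1. In replicate 3, 3 lay below and 23 above every untreated tumour. These positions were counted for the members only, so no share of all genes stands beside them. The median log2 ratio of the members to the untreated mean was -0.91 in replicate 1, -0.36 in replicate 2 and 0.24 in replicate 3. The treated tumours of the other clones spanned less. In 2646TN the medians were between -0.51 and -0.27, and in 2646R between -1.23 and -1.16. Those of 14559TN were between -0.70 and -0.54, and those of 13TN between -1.18 and -0.996. Asns, for example, measured 24.5 CPM in replicate 1 and 149.5 CPM in replicate 3, and Slc7a11 22.7 and 108 CPM. Without treated replicate 3 the member median of the 14559R response was -0.62, and 3 members were called lower, Asns, Shmt2 and Psat1. Without treated replicate 1 the median was -0.034 with 0 called. At an unadjusted p under 0.05 these fits had 23 and 3 members, and the share of all genes at that cut was not counted. The dissociation stress genes summed to 2809 to 4269 CPM in treated and 3307 to 3920.2 CPM in untreated 14559R. Fibroblast markers summed to 13146 to 22163 and 10551 to 13756 CPM. Their part in the spread was not tested.

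**Figure D5:**
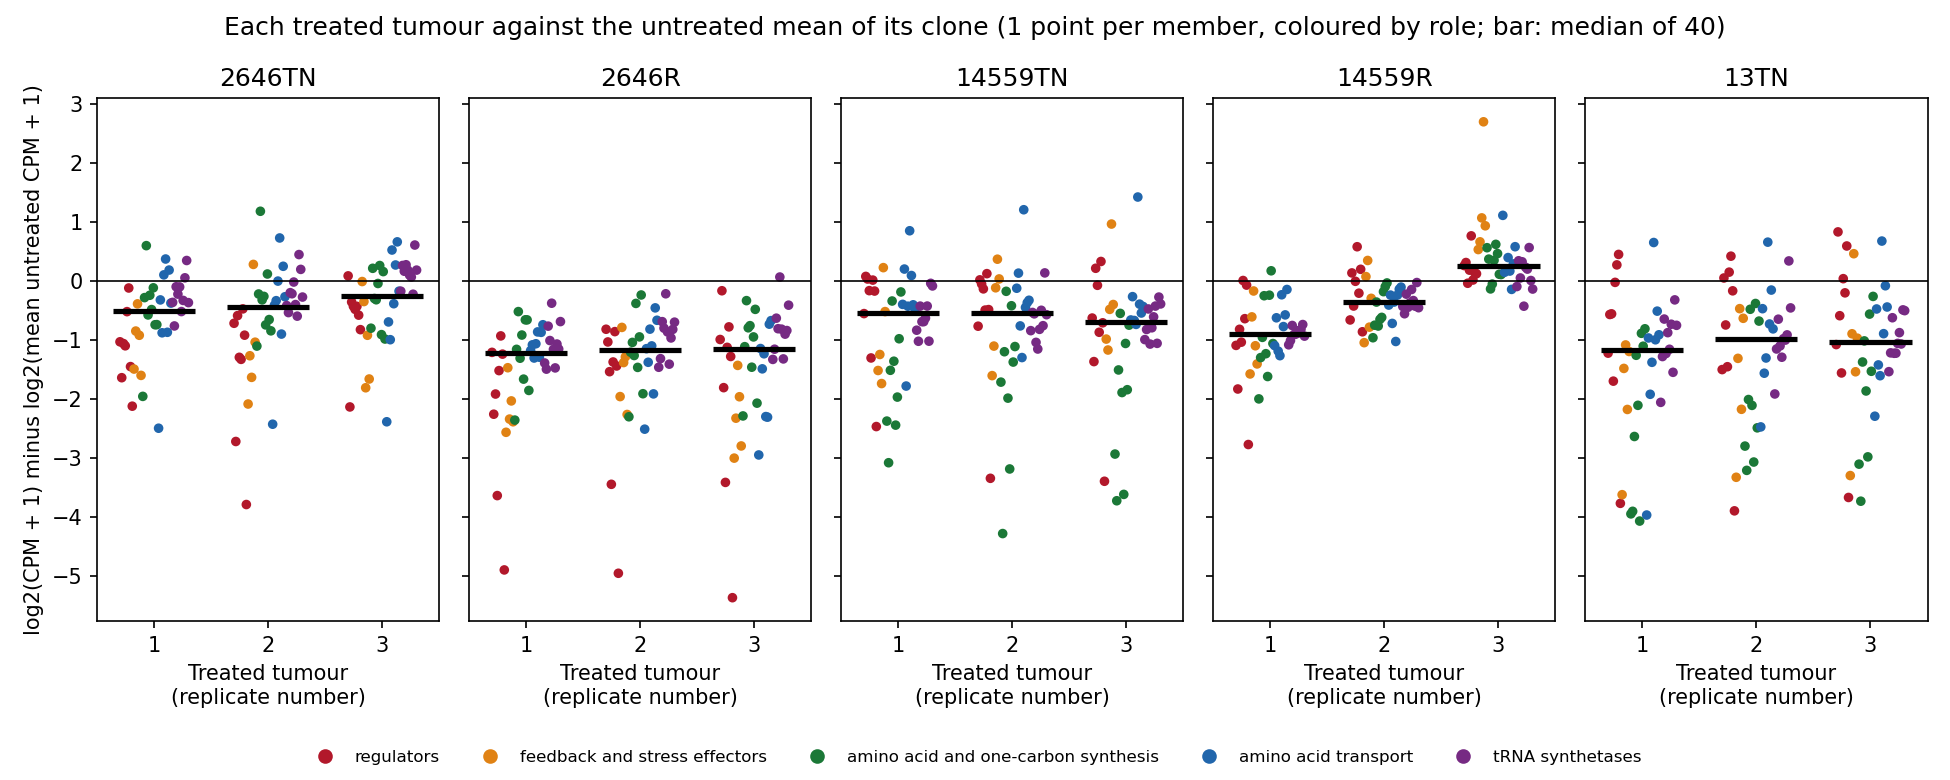
Log2 ratio of each member in each treated tumour to the untreated mean of its clone, from CPM with 1 added, 1 point per member coloured by role, with the median of the 40 as a bar. The bars of the 3 treated 14559R tumours lie at -0.91, -0.36 and 0.24, while those of each other clone lie close together and below 0.

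Genes close to the 40 in function were counted in the same fit. Of all tested genes, 2.24% were called lower and 1.69% higher in 2646TN, and 10.2% lower and 9.70% higher in 2646R. In 14559TN these shares were 16.0% and 12.4%, in 14559R 0.0527% and 0.143%, and in 13TN 17.4% and 13.6%. Of 12 other cytosolic synthetase and scaffold genes, 5 fell in 2646R, 9 in 14559TN and 9 in 13TN, 0 in 2646TN and 0 in 14559R, and 0 rose. Their medians were -0.10, -0.60, -0.52, 0.08 and -0.14, so in 2646R they lay nearer 0 than the 10 member synthetases (-0.95). Iars, the synthetase for isoleucine, changed by -1.16 ± 0.18 in 2646R (edgeR adjusted p = 1.30e-05), -1.34 ± 0.20 in 14559TN (adjusted p = 3.28e-06) and -1.21 ± 0.19 in 13TN (adjusted p = 5.90e-06). Lars, for leucine, changed by -0.98 ± 0.15 in 13TN (edgeR adjusted p = 4.59e-06), and the scaffold gene Aimp2 by -0.98 ± 0.19 in 14559TN (adjusted p = 1.39e-04). Lars also fell in 2646R (-0.65 ± 0.15, edgeR adjusted p = 0.00147) and 14559TN (-0.67 ± 0.15, adjusted p = 8.86e-04). Aimp2 also fell in 13TN (-0.46 ± 0.17, edgeR adjusted p = 0.0430). Of 17 mitochondrial synthetases 0 fell in 2646R and 1 rose. In 14559TN and in 13TN 1 fell and 2 rose, and in 2646TN and 14559R 0 were called. Medians of the mitochondrial genes lay between -0.20 and 0.32. Cars2, the mitochondrial counterpart of Cars, changed by 1.28 ± 0.22 in 14559TN (edgeR adjusted p = 2.99e-05) and 1.31 ± 0.22 in 13TN (adjusted p = 2.32e-05).

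Of 13 genes for eIF2 kinases and translation factors, edgeR called 0 lower and 1 higher in 2646TN, 1 lower and 1 higher in 2646R, 4 lower and 1 higher in 14559TN, 0 lower and 0 higher in 14559R, 5 lower and 1 higher in 13TN. Eif4ebp1, an ATF4 target that encodes the translation repressor 4E-BP1, fell by 2.09 ± 0.19 in 13TN (edgeR adjusted p = 4.46e-10), 1.42 ± 0.18 in 2646R (adjusted p = 1.21e-06) and 1.41 ± 0.19 in 14559TN (adjusted p = 9.50e-07). In 2646TN (-0.31 ± 0.18) and 14559R (-0.19 ± 0.18) it was not called. Eif2s1 and Eif2s2, the alpha and beta subunits of eIF2 itself, changed by -1.05 ± 0.18 (edgeR adjusted p = 2.12e-05) and -1.16 ± 0.17 (adjusted p = 4.71e-06) in 13TN. Their changes in 14559TN were -1.19 ± 0.18 (edgeR adjusted p = 8.11e-06) and -0.90 ± 0.18 (adjusted p = 1.84e-04). Of 25 other genes linked to ATF4, 21 could be tested, with 5 lower and 0 higher in 2646TN, 16 lower and 0 higher in 2646R, 7 lower and 1 higher in 14559TN, 0 lower and 0 higher in 14559R, 9 lower and 0 higher in 13TN. Among them were Vegfa, an angiogenic factor, Slc6a9, a glycine carrier, and Sqstm1, the autophagy receptor p62. Slc6a9 changed by -2.14 ± 0.20 in 2646R (edgeR adjusted p = 2.76e-09) and Sqstm1 by -1.84 ± 0.15 in 2646R (adjusted p = 2.68e-10). Both also fell in 13TN, Slc6a9 by -0.68 ± 0.19 (edgeR adjusted p = 0.00729) and Sqstm1 by -0.92 ± 0.15 (adjusted p = 1.02e-05). Sqstm1 fell in 14559TN as well (-0.40 ± 0.15, edgeR adjusted p = 0.0363). Vegfa changed by -1.80 ± 0.15 in 2646TN (edgeR adjusted p = 4.39e-10) and -2.27 ± 0.14 in 2646R (adjusted p = 7.45e-13). It also fell in 14559TN (-0.79 ± 0.14, edgeR adjusted p = 8.48e-05) and 13TN (-0.58 ± 0.14, adjusted p = 0.00183).

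The other one-carbon and proline genes, 18 of 20 tested, had 0 lower and 0 higher in 2646TN, 2 lower and 4 higher in 2646R, 9 lower and 2 higher in 14559TN, 0 lower and 0 higher in 14559R, 9 lower and 2 higher in 13TN. Shmt1, the cytosolic form of SHMT2, changed by 1.01 ± 0.28 in 2646R (edgeR adjusted p = 0.00926), -3.59 ± 0.40 in 14559TN (adjusted p = 2.76e-08) and -2.38 ± 0.35 in 13TN (adjusted p = 2.34e-06). Tyms, which makes thymidylate for DNA, changed by 1.01 ± 0.23 in 2646R (edgeR adjusted p = 0.00174), -1.61 ± 0.26 in 14559TN (adjusted p = 1.42e-05) and -1.76 ± 0.25 in 13TN (adjusted p = 1.74e-06). Mthfd1l, a mitochondrial folate enzyme, changed by -2.17 ± 0.21 in 14559TN (edgeR adjusted p = 3.89e-09), -2.05 ± 0.20 in 13TN (adjusted p = 1.89e-09) and -0.76 ± 0.19 in 2646R (adjusted p = 0.00405). Of 20 endoplasmic reticulum chaperones and sensors of the unfolded protein response, edgeR called 1 lower and 0 higher in 2646TN, 3 lower and 1 higher in 2646R, 2 lower and 1 higher in 14559TN, 0 lower and 0 higher in 14559R, 5 lower and 0 higher in 13TN. Ern1, the sensor IRE1 alpha, changed by -1.09 ± 0.19 in 2646R (edgeR adjusted p = 8.64e-05), and Edem1, of the degradation pathway, by -1.34 ± 0.20 in 14559TN (adjusted p = 3.69e-06). Ern1 also fell in 2646TN (-0.72 ± 0.19, edgeR adjusted p = 0.0245). Edem1 also fell in 2646R (-0.53 ± 0.17, edgeR adjusted p = 0.0282) and 13TN (-0.99 ± 0.19, adjusted p = 1.08e-04). The medians of these 20 genes lay between -0.28 and -0.028 in the 5 responses, and their counts were near the shares of all genes. Untreated, 6 of these 20 were higher and 3 lower in 2646R than in 2646TN (18.3% and 18.4% of all genes). Between 14559R and 14559TN 10 were higher and 1 lower in 14559R (12.9% and 11.2%).

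Markers of other cells were measured beside these results. The 15 macrophage markers summed to 165 to 260.3 CPM in untreated and 30.2 to 71.7 CPM in treated 2646TN tumours. In 2646R they summed to 33.9 to 64.7 and 112 to 133 CPM, and in 14559TN to 24.1 to 84.7 and 69.6 to 129.8. In 13TN the sums were 41.7 to 67.4 and 28.6 to 77.8 CPM, and in 14559R 20.8 to 46.4 and 22.7 to 40.3. The 11 fibroblast markers, which include collagens, summed to 5926 to 7223 CPM in untreated and 14401 to 16148 CPM in treated 2646R, and to 3786 to 4612 and 8136 to 9198 CPM in 13TN. In 14559TN their sums were 8722 to 9581 CPM untreated and 9967 to 16052 treated, and in 2646TN 4519 to 6719 and 5456 to 12623. The collagens Col1a2, Col3a1 and Col1a1 had the highest medians of the 11 over all libraries (4674, 2523 and 790 CPM). Thy1, Pi16 and Mfap5 had the lowest (1.68, 0.610 and 0.504 CPM). Of the 11, edgeR called 3 higher and 0 lower in 2646R, 5 and 0 in 13TN, 4 and 1 in 14559TN and 1 and 0 in 2646TN. Dissociation stress genes summed to 2891 to 4385 CPM untreated and 1959 to 2349.7 treated in 2646TN, 2721 to 3492 and 2366 to 3480.4 in 2646R, and 2287 to 3056 and 2833 to 4226 in 13TN. In 14559TN they were 1732 to 1976 and 1348 to 2518 CPM. Of the 17 dissociation stress genes, edgeR called 6 higher and 0 lower in the 13TN response, and 0 higher and 3 lower in that of 2646TN. The list holds Fos, Egr1, Dusp1 and other early-response genes, and whether handling or the drugs changed them was not tested. The fibroblast sums of treated and untreated tumours did not overlap in 2646R, 13TN and 14559TN, nor did the macrophage sums in 2646TN and 2646R or the dissociation sums in 2646TN. Pericyte and smooth muscle markers summed to 103 to 109 CPM untreated and 283 to 779 treated in 2646TN. In 2646R these sums were 451 to 474 and 862 to 1142 CPM, and in the other clones they overlapped. In 2646TN the neutrophil, endothelium and melanocyte lineage sums were lower in every treated tumour. In 14559TN the erythroid sums were all lower and the melanocyte lineage sums all higher with treatment. The part of these genes in the members' changes was not tested.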

How the data were processed

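RNA was measured by QuantSeq, a method that sequences transcript 3′ ends, in 30 sorted tumours, 3 in each of 10 clone and treatment groups taken from the labels. Reads were aligned with STAR 2.6.0c to GRCm38, per the submitters' processing notes, and the deposited files hold whole-number counts per gene from featureCounts 1.6.2, counted by strand and without multi-mapped reads, per the file headers. The annotation release is not given in the sources used here. Depth was 3022801 to 5278453 counts a library, which limits the precision of low genes, and intervals cover counting error only. The check of files found 0 identical pairs of libraries.

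Counts were tested with edgeR 4.0.16 (quasi-likelihood, TMM factors of 0.926 to 1.08, filterByExpr, 20 residual degrees of freedom, R 4.3.3) in 1 fit over all 10 groups, with p-values adjusted by Benjamini-Hochberg over 13286 genes in each of 13 comparisons. The biological coefficient of variation was 18.2%. Log2 fold changes are from that fit on the deposited counts, and a standard error is the fold change divided by the root of F. Nothing says that tumours of a group came from separate injections of separate cultures, so p-values measure the spread between these tumours. The code was tested on simulated data. The members and all lists were chosen with earlier results of these data known. Values in every library are given for members called in at least 3 responses or with a log2 change of at least 2 in a called comparison, other members are given by range and counts, and up to 3 genes are named for each further list. Alternatives were median-of-ratios factors, DESeq2 1.42.0, no filter, a fit of just the compared groups and leaving out each library. The motif TGATGCAA was added after seeing the matches. The annotation has 3 members that share exon bases on the same strand with another gene: Ddit3 (a second identifier with 0 counts), Aars (Exosc6, 0 counts) and Cebpg (Gm44836, 836 counts against 7184). Figures used Python 3.11.15 and matplotlib 3.10.9.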

Additional observations from a re-analysis of the deposited data

Results flagged for a closer look

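Each of the 12 results here is a difference between the responses of paired clones that passed an adjusted p under 0.05 in edgeR's quasi-likelihood test of the difference itself. In the 2646TN/2646R pair the response was lower in 2646R than in 2646TN for Ddit3 (-2.63 on the log2 scale), Slc1a4 (-1.43), Wars (-1.35), Sars (-1.15), Atf5 (-1.11), Aars (-1.09) and Slc1a5 (-1.07). In the 14559TN/14559R pair it was higher in 14559R than in 14559TN for Psat1 (3.45), Mthfd2 (2.90), Pycr1 (1.54), Shmt2 (1.40) and Cebpb (1.37). The first list holds stress factors, carriers and synthetases, and the second holds Cebpb and 4 enzymes of serine, folate and proline metabolism. Beside the 7 of 40 in the first list, 1.78% of all genes were called lower. Beside the 5 of 40 in the second, 7.93% were called higher, so that list is closer to the background. Without treated 14559TN replicate 3 or untreated 14559R replicate 2, 3 members were called in the second comparison.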

How the results depend on the processing

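Of 201 calls of members in the 11 comparisons between 2 groups or 2 responses, 148 held in every alternative, 53 were lost in at least 1 and 1 of these reversed. The reversed one was Gdf15 in treated 14559R against 14559TN, at -2.08 without treated 14559R replicate 3, and it was 3.43 without treated 14559TN replicate 3. Without the filter on low counts, 13 members were called in the response of 2646TN, 1 in that of 14559R, 15 in treated 2646R against 2646TN, 16 in the difference of the 2646R and 2646TN responses and 11 in that of the 14559R and 14559TN responses. Fitting just the compared groups called 12 in the difference of the 2646R and 2646TN responses. The cause was not tested. Leaving out 1 library gave 2 to 5 calls in 2646TN, 0 to 3 in 14559R, 4 to 9 in treated 2646R against 2646TN and 3 to 12 in the difference of the 14559R and 14559TN responses. Counts by DESeq2 and with median-of-ratios factors stayed within 1.5 times the main ones. In the response of 14559TN, 1 member was called higher with median-of-ratios factors, by DESeq2, without the filter and without untreated replicate 3. In that of 13TN, 1 member was called higher without treated replicate 2. For the difference among 5 responses, the fit of just the compared groups is the fit of all groups and was not run. No paired analysis was possible because the labels give each tumour a code of its own, and the replicate numbers used here only name tumours in accession order and pair none of them. Members at a few counts, such as Gdf15, are limited by depth.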
